A study of Mus musculus with 12 samples.

Results

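The change in liver RNA between 6 h and 12 h was measured in mice that had received concanavalin A (Con A) together with mesenchymal stem cells (MSC). The comparison sets the 3 libraries labelled Con A+MSC 12h against the 3 labelled Con A+MSC 6h, 6 of the 12 libraries of the series, over all 14275 genes with enough counts to be tested out of 23574 entries. All mice were wild-type C57BL/6, all had received Con A, and no mice without Con A were analysed here. The other 6 libraries, Con A 6h and Con A 12h, came from livers of mice given Con A without MSC. The labels give liver as the tissue, although the design text speaks of hepatocyte RNA. They state neither the source, species or dose of the MSC nor the dose of Con A. Nor do they state whether the 3 libraries of a group came from 3 animals. The edgeR p-values thus measure the spread between libraries, estimated over all 12, which may not be that between animals. With livers taken at 2 times after injection, time since Con A cannot be told apart from time of day.

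Con A is a plant lectin that cross-links receptors on T cells and Kupffer cells and causes acute inflammatory injury of the mouse liver. In such an injury, cytokines released within hours act on hepatocytes, which switch on early response and acute-phase genes and switch off many genes of metabolism. MSC are stromal cells used experimentally to dampen inflammation. The genes below are ordered from early signals through immune genes and cell stress to liver metabolism and the clock.

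Library totals lay between 30.3 and 36.1 (units of 1e6 counts) in the 6 libraries, and 3 counts corresponded to 0.0657 to 0.119 counts per 1000000 (CPM, scaled by TMM factors). Albumin, the main secreted product of hepatocytes, had between 26461 and 57056 CPM in each of these libraries. TMM factors were 0.8147 to 0.8985 at 6 h and 1.225 to 1.291 at 12 h, so the choice of scaling bears on small changes. The median log2 change over all tested genes was 0.06 with TMM and 0.59 with scaling by total count. Mitochondrially encoded genes made up 11.5 ± 0.567% of counts at 6 h and 7.74 ± 1.49% at 12 h (mean ± SD, n = 3; exact two-sided permutation p = 0.1, the smallest that 3 against 3 libraries can give).

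With edgeR's quasi-likelihood test, 5816 genes passed an adjusted p of 0.05, 2938 higher at 12 h (20.6% of those tested) and 2878 lower (20.2%). With scaling by total count 7008 passed, 5780 higher and 1228 lower, so 82.5% of the calls were rises in place of 50.5%. At least a 2-fold change was called for 1813 rises and 1637 falls, and at least 4-fold for 602 and 615. In 8361 genes (58.6%) the 3 libraries of one time lay all above the 3 of the other. In the following, "rose" and "fell" are used for genes that passed, log2 changes are 12 h against 6 h with their standard errors (SE), and in RNA of whole liver fewer cells of a type cannot be told apart from less RNA per cell. The strip plot shows the log2 change of each gene of 53 gene lists.

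**Figure D1:**
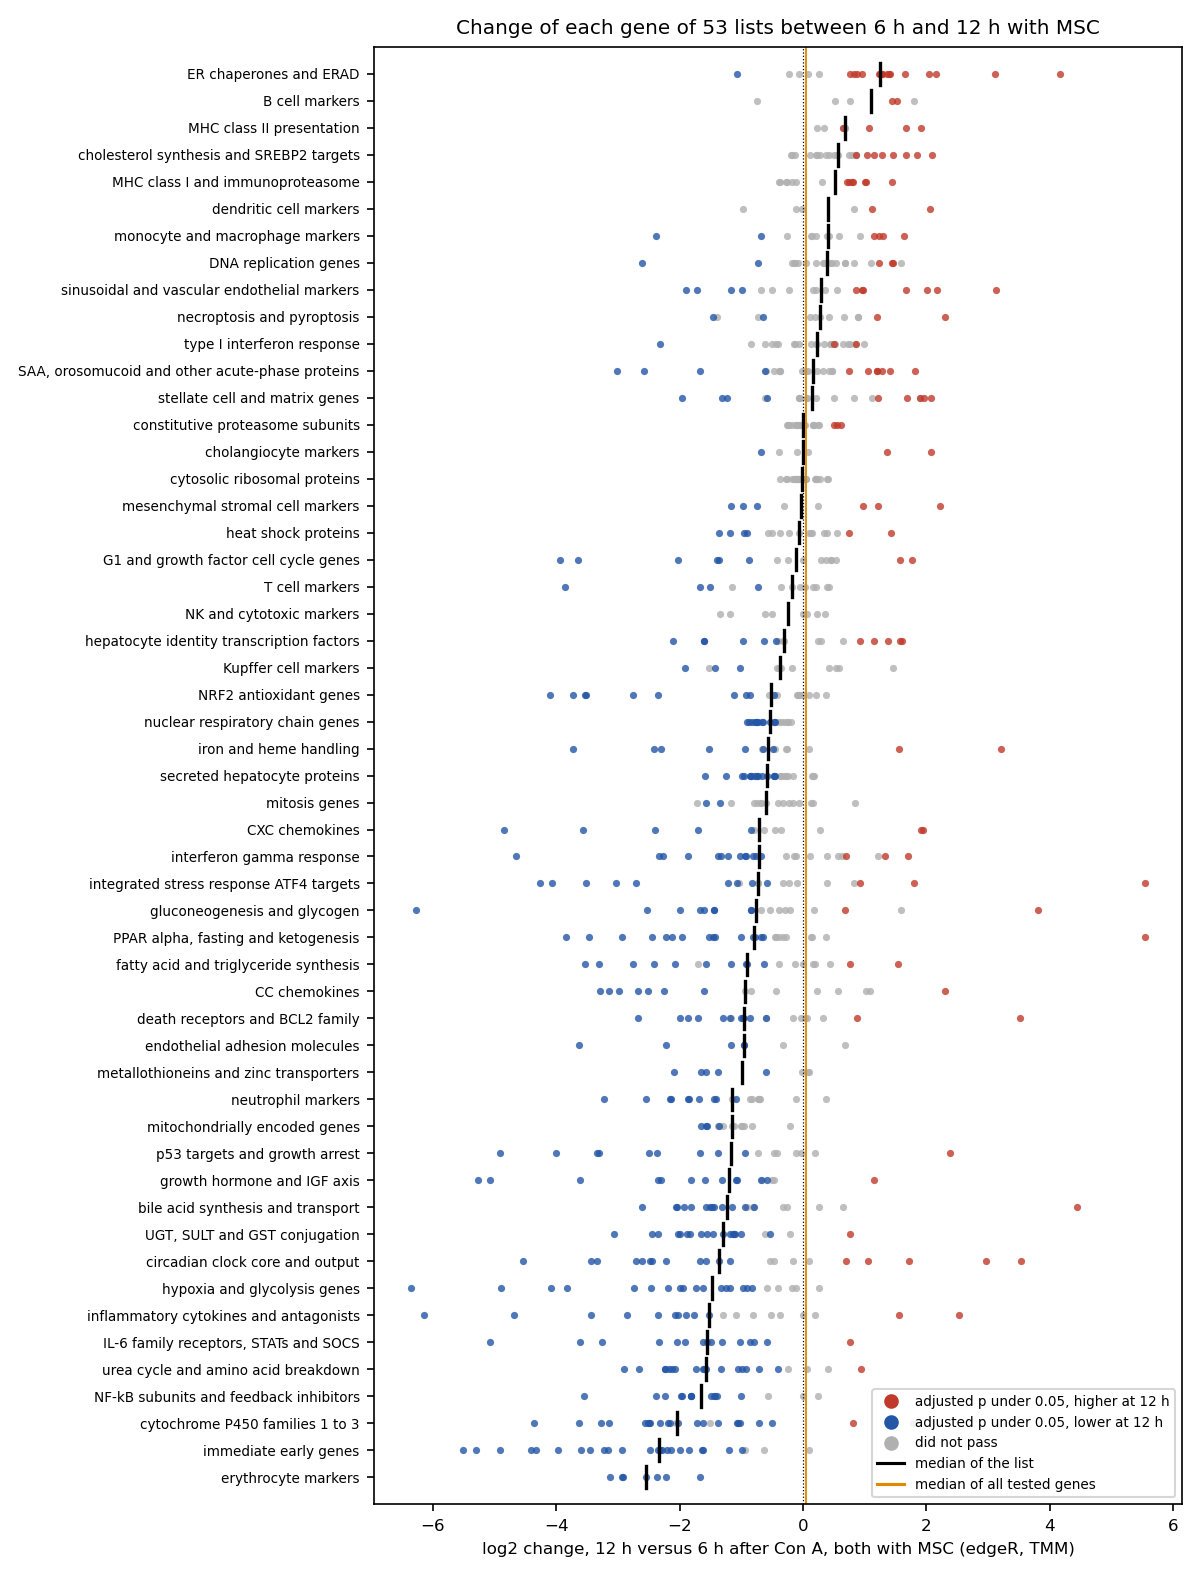
Log2 change between 6 h and 12 h with MSC (horizontal axis) for each tested gene of 53 lists (rows, ordered by median). Points are genes, coloured by whether they passed an adjusted p of 0.05 in edgeR, the black bar is the list's median and the orange line the median of all tested genes (0.06). Erythrocyte, immediate early and P450 genes lie at the lower end, with medians of -2.54, -2.33 and -2.04, and ER chaperones at the upper end with 1.25. Scaling by total count raises the median of all genes to 0.59 and turns the sign of the median for the Kupffer, T cell, NK, cholangiocyte, MSC marker, G1, heat shock, NRF2, hepatocyte transcription factor and ribosomal lists.

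Among the genes with large falls, Igfbp1, a hepatic binding protein of insulin-like growth factors, had 2989.8, 2091 and 2734 CPM at 6 h and 69.7, 34.1 and 97.6 CPM at 12 h (log2 change -5.28 ± 0.41 SE, edgeR adjusted p = 2.98e-06). Adm, the vasodilator peptide adrenomedullin, had 32.3, 27.6 and 29.6 CPM at 6 h and 0.417, 0.372 and 0.294 CPM at 12 h (log2 change -6.36 ± 0.55 SE, edgeR adjusted p = 5.91e-06). Other large falls were those of Rnd1, a small GTPase, at -5.68, Akap12, a scaffold of protein kinase A, at -5.28, and Tiparp, a mono-ADP-ribosyltransferase induced through the aryl hydrocarbon receptor, at -5.26. Dusp8, a phosphatase of MAP kinases, had a log2 change of -5.15 and Fam107a of -5.08. In each of these genes the 3 libraries at 6 h lay above the 3 at 12 h, which the rule for naming large changes required. Fam107a had a log2 change of -4.36 without 6 h replicate 1.

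The largest rises included metabolic and junction genes. Nr0b2, which encodes the nuclear receptor SHP, a repressor of bile acid synthesis, had 1.47, 1.66 and 4.18 CPM at 6 h and 50.8, 53.2 and 56.3 CPM at 12 h (log2 change 4.45 ± 0.36 SE, edgeR adjusted p = 3.95e-06). Angptl8, a regulator of lipoprotein lipase, had 3.50, 9.88 and 14.8 CPM at 6 h and 108, 164 and 150.1 CPM at 12 h (log2 change 3.90 ± 0.46 SE, edgeR adjusted p = 5.61e-05). Cldn1, a tight junction claudin, had 3.38, 4.73 and 4.35 CPM at 6 h and 35.7, 68.2 and 75.6 CPM at 12 h (log2 change 3.85 ± 0.35 SE, edgeR adjusted p = 1.00e-05). The 12 h libraries lay above the 6 h libraries for all 3 genes, as the rule for naming them required. G6pc, the catalytic subunit of glucose-6-phosphatase, had 3.14, 4.06 and 5.96 CPM at 6 h and 21.6, 33.8 and 129.9 CPM at 12 h (log2 change 3.81 ± 0.68 SE, edgeR adjusted p = 0.000850), with replicate 3 at 12 h far above replicates 1 and 2. Log2 changes of the others were 3.83 for Cyp2u1, a fatty acid hydroxylase, 4.08 for Celsr1, a cadherin of planar cell polarity, 4.28 for Ica1 and 4.36 for Gjc3, a connexin. Nr0b2 had a log2 change of 5.10 without 6 h replicate 3. G6pc had a log2 change of 2.67 without 12 h replicate 3.

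Some of the largest log2 changes belonged to neighbouring genes of chromosome 4 whose counts were high in some libraries only. Zfp37 had 0.199, 0.176 and 0 CPM at 6 h and 15.3, 0.591 and 13.1 CPM at 12 h. Kif12 had 0, 0 and 0 CPM at 6 h and 10.3, 1.03 and 8.74 CPM at 12 h. Bspry had 0.318, 0.459 and 0 CPM at 6 h and 9.59, 0.591 and 8.18 CPM at 12 h. Replicate 2 at 12 h was low for all 3. In 12 h replicates 1 and 3, Kif12 lay at 0.673 and 0.67 of the Zfp37 level and Bspry at 0.627 and 0.626. In 12 h replicate 2 those ratios were 1.74 and 1.0. In Con A 12h replicates 2 and 3, without MSC and with high counts, the ratios were 0.648 and 0.652 for Kif12 and 0.621 and 0.625 for Bspry, and in Con A 12h replicate 1, with low counts, 1.3 and 1.1. Tnfsf15 had 2.54, 1.73 and 128 CPM at 6 h and 0.0521, 0.0876 and 0.136 CPM at 12 h. Tnfsf8 had 0.716, 0.353 and 83.4 CPM at 6 h and 0.0521, 0.329 and 0.248 CPM at 12 h, and the levels of both at 6 h came almost wholly from replicate 3. Without that library the log2 change of Tnfsf15 was -4.46 (edgeR adjusted p = 0.000803) in place of -8.83, and that of Tnfsf8 was -1.30 (adjusted p = 0.168) in place of -7.01. The call of Zfp37 (log2 change 6.25) was lost without 6 h replicate 3 (adjusted p = 0.0547), and that of Bspry (log2 change 4.54) when a 6 h library, or 12 h replicate 1 or 3, was left out (adjusted p up to 0.0913). Whether these counts come from the named genes was not tested. Bspry had a log2 change of 5.30 without 6 h replicate 2.

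Immediate early genes encode transcription factors and feedback proteins that cells make within minutes of a stimulus. Of 26 tested, 23 fell and 3 did not pass, with a median log2 change of -2.33. Atf3, a stress-induced factor of the ATF family, had 268, 215 and 231 CPM at 6 h and 3.28, 5.58 and 6.69 CPM at 12 h (log2 change -5.52 ± 0.64 SE, edgeR adjusted p = 4.88e-05). Jun, the AP-1 subunit, had 293, 299 and 304 CPM at 6 h and 33.9, 32.7 and 28.8 CPM at 12 h (log2 change -3.23 ± 0.24 SE, edgeR adjusted p = 2.14e-06). All libraries at 6 h stood above those at 12 h for both. Egr1, a zinc finger factor, had 190.4, 219.9 and 194 CPM at 6 h and 32.9, 30.9 and 87.4 CPM at 12 h (log2 change -1.997 ± 0.45 SE, edgeR adjusted p = 0.00377), and replicate 3 was the highest at 12 h. Fos, the partner of Jun, had 26.3, 27.0 and 48.8 CPM at 6 h and 1.46, 11.1 and 7.52 CPM at 12 h (log2 change -2.34 ± 0.58 SE, edgeR adjusted p = 0.00706), with replicate 3 the highest at 6 h. Falls of the other panel genes were -2.31 for Junb and -3.45 for Myc, a driver of cell growth. The smallest adjusted p of this list were those of Ier3, a survival factor induced by NF-kB, at -5.30, Btg2, an antiproliferative protein, at -4.92, Maff, a small MAF factor, at -4.32, and Fosl2 at -2.201. Egr1 had a log2 change of -2.64 without 12 h replicate 3.

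**Figure D2:**
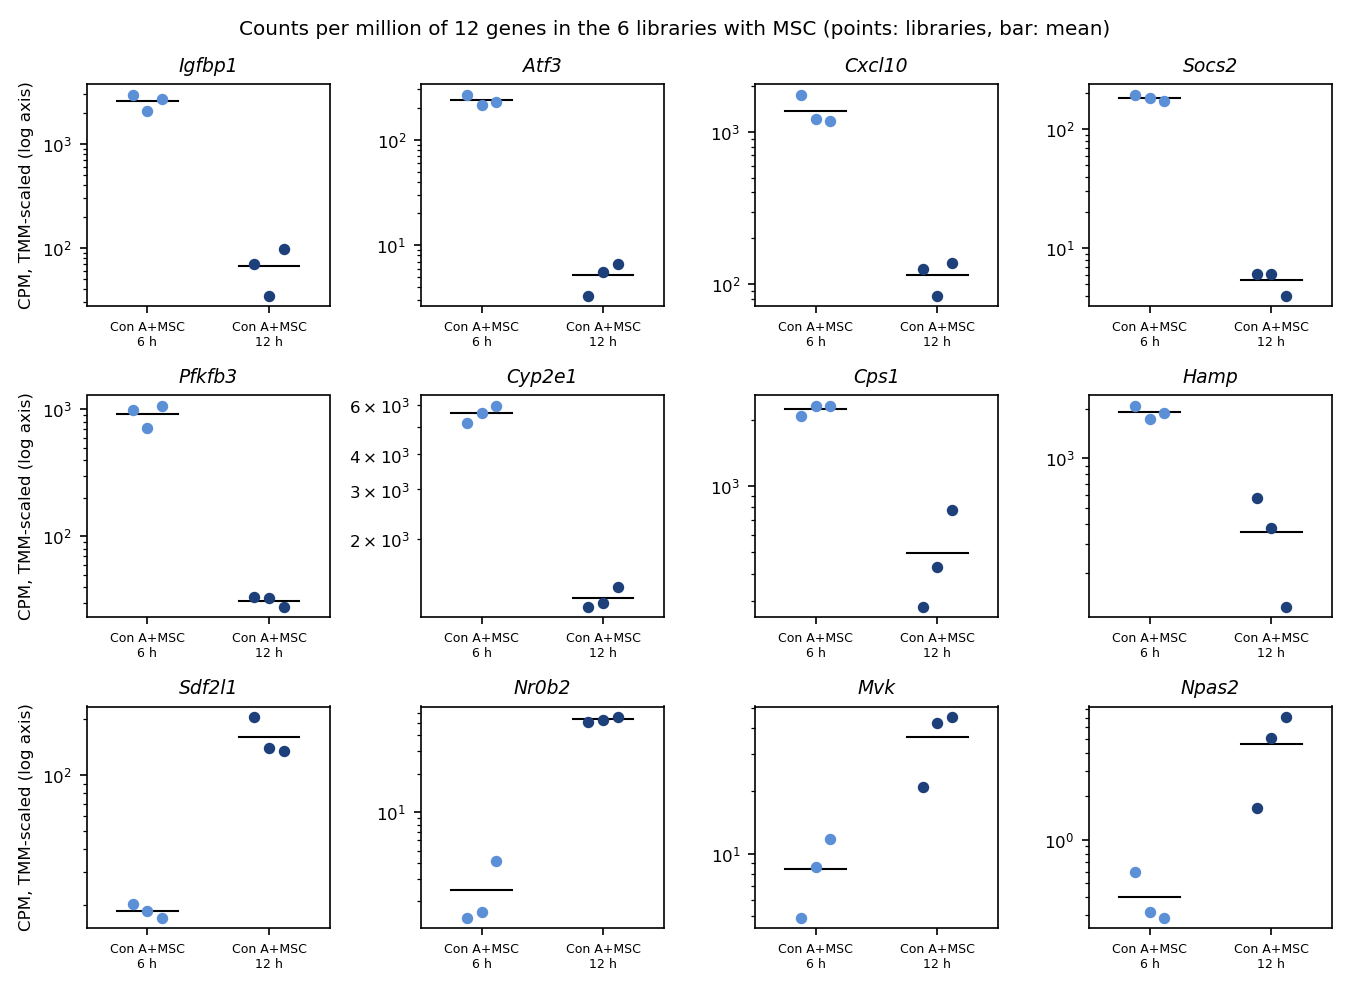
CPM with TMM scaling (vertical axes, logarithmic) of 12 genes in the 3 libraries at 6 h (light) and the 3 at 12 h (dark) with MSC. Points are libraries and bars their means. Igfbp1, Atf3, Cxcl10, Socs2, Pfkfb3, Cyp2e1, Cps1 and Hamp are lower and Sdf2l1, Nr0b2, Mvk and Npas2 higher at 12 h, with no overlap in any panel, and none of the 12 log2 changes turns its sign when total count is used.

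More cytokine genes fell than rose, and several were at a few CPM or less. Of 19 tested cytokines and antagonists, 10 fell and 2 rose, 1 without 12 h replicate 3 (median -1.53). With scaling by total count 8 fell and 3 rose. Il1rn, the antagonist of the interleukin-1 receptor, had 424, 232 and 241 CPM at 6 h and 40.9, 17.9 and 23.7 CPM at 12 h (log2 change -3.44 ± 0.47 SE, edgeR adjusted p = 0.000145). Il1b, its inflammatory counterpart, had 13.4, 3.60 and 7.74 CPM at 6 h and 1.72, 1.27 and 1.85 CPM at 12 h (log2 change -2.35 ± 0.53 SE, edgeR adjusted p = 0.00387). Both were highest in 6 h replicate 1 and did not overlap between times. Tnf had 6.80, 2.72 and 4.35 CPM at 6 h and 1.72, 1.40 and 1.67 CPM at 12 h (log2 change -1.53 ± 0.53 SE, edgeR adjusted p = 0.0364). Il6, the inducer of hepatic acute-phase genes, had 1.15, 0.353 and 0.500 CPM at 6 h and 0.130, 0.153 and 0.181 CPM at 12 h (log2 change -2.07 ± 0.74 SE, edgeR adjusted p = 0.0402). These levels are a few CPM or less. Osm, a cytokine of the IL-6 family, fell by 4.68 on the log2 scale and Csf3, the granulocyte colony-stimulating factor, was between 1.39 and 5.84 CPM at 6 h and at most 0.0657 CPM at 12 h. For Ifng, the main T cell product in this model, the log2 change was -0.81 (edgeR adjusted p = 0.252) and for Il10, an anti-inflammatory cytokine, -1.29 (adjusted p = 0.279), and neither passed. Il4, with no count in 5 of the 6 libraries, was not tested. The rises were those of Tnfsf10, the death ligand TRAIL, chosen here after its value was seen (1.56 for Tnfsf10, adjusted p = 0.0135), and Il18bp, the soluble inhibitor of interleukin-18, which had 13.4, 14.3 and 15.7 CPM at 6 h and 92.2, 69.1 and 89.5 CPM at 12 h (log2 change 2.53 ± 0.29 SE, edgeR adjusted p = 4.88e-05). Tnf and Il6 lost the call without 6 h replicates 1 or 3 or 12 h replicates 1, 2 or 3 (edgeR adjusted p up to 0.158 and 0.195). Tnf and Il6 did not pass with scaling by total count (edgeR adjusted p 0.0974 to 0.131). Il6 had a log2 change of -1.42 without 6 h replicate 1. Csf3 had a log2 change of -5.27 without 6 h replicate 1 and -6.74 without 12 h replicate 2.

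Among CC chemokines, 7 of 15 fell and 1 rose, 3 with scaling by total count. The rise, of Ccl8, named after its value was seen (log2 change 2.31 ± 0.82 SE, edgeR adjusted p = 0.0386), did not pass without 6 h replicate 2 or 3 or 12 h replicate 2 or 3. Ccl2, the monocyte attractant, had 85.8, 42.2 and 49.2 CPM at 6 h and 6.98, 10.8 and 9.92 CPM at 12 h (log2 change -2.67 ± 0.44 SE, edgeR adjusted p = 0.000547). Ccl3 and Ccl4, attractants of macrophages and T cells, fell by 3.30 and 2.99 on the log2 scale, and Ccl11, eotaxin, fell by 2.52. Ccl5, a T cell chemokine, had 3.34, 1.13 and 2.89 CPM at 6 h and 2.03, 5.65 and 7.93 CPM at 12 h (log2 change 1.09 ± 0.57 SE, edgeR adjusted p = 0.142) and did not pass. Among CXC chemokines, 5 of 12 fell and 2 rose, with 3 falls under scaling by total count. Cxcl10, induced by interferon and a ligand of CXCR3, had 1750.3, 1203 and 1176 CPM at 6 h and 127, 83.7 and 137 CPM at 12 h (log2 change -3.57 ± 0.52 SE, edgeR adjusted p = 0.000237). Cxcl9, a ligand of the same receptor, had 7744, 5256 and 5697 CPM at 6 h and 2903, 3425 and 4102 CPM at 12 h (log2 change -0.84 ± 0.28 SE, edgeR adjusted p = 0.0313). Cxcl9 thus stayed above Cxcl10 in each library. Cxcl2, a neutrophil attractant, fell by 4.85 on the log2 scale, whereas Cxcl1, which acts on the same receptor, had 268, 167 and 109 CPM at 6 h and 139, 88.1 and 85.1 CPM at 12 h and did not pass (log2 change -0.80 ± 0.34 SE, edgeR adjusted p = 0.0783). Cxcl12, a constitutive chemokine of stromal and endothelial cells, had 42.7, 50.04 and 37.5 CPM at 6 h and 149, 171 and 183 CPM at 12 h (log2 change 1.95 ± 0.23 SE, edgeR adjusted p = 6.12e-05), and Cxcl14 rose by 1.92 from about 1 CPM. Cxcl9 lost the call without 6 h replicates 1 or 3 or 12 h replicates 1 or 2 (edgeR adjusted p up to 0.141). Cxcl9 did not pass with scaling by total count (edgeR adjusted p 0.253). Ccl3 had a log2 change of -2.59 without 6 h replicate 1. Cxcl2 had a log2 change of -5.65 without 12 h replicate 1.

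NF-kB subunits and their feedback inhibitors mostly fell. The pathway acts through dimers that enter the nucleus when IkB proteins are degraded, and it induces its own inhibitors. Of 16 tested genes 13 fell (median -1.65). Tnfaip3, the ubiquitin-editing inhibitor A20, had 286, 154 and 106 CPM at 6 h and 14.3, 15.0 and 17.1 CPM at 12 h (log2 change -3.55 ± 0.35 SE, edgeR adjusted p = 1.46e-05). Nfkbia, the inhibitor IkB alpha, had 222, 159 and 142 CPM at 6 h and 71.1, 35.6 and 41.3 CPM at 12 h (log2 change -1.82 ± 0.37 SE, edgeR adjusted p = 0.00220). Nfkb1, the p50 precursor, fell by 1.82 on the log2 scale, Birc3, an inhibitor of apoptosis, by 1.98, and Bcl3, a nuclear IkB protein, by 1.45. The groups did not overlap for these genes.

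The promoters of this list were searched for kappaB sites, GGGA and CC with 4 bases of any kind between them, on either strand. The promoters came from the RefSeq table (GRCm38.p6, 250 bases before each start). Of the 10 members that fell and have an entry 7 hold this pattern (70%), against 19.7% of 27025 genes. Of all tested members with an entry 8 of 13 hold it (61.5%), among them Cyld, which did not pass. The stretches below, 100 bases each and written 5′ to 3′ on the gene's strand, show in capitals each match in 3 of the members that fell. Tnfaip3 is at chr10:19011998-19012097 (minus strand), Nfkbia at chr12:55492648-55492747 (minus strand) and Nfkb2 at chr19:46304637-46304736 (plus strand). The capitals of Tnfaip3, of Nfkbia and of the second match of Nfkb2 show the pattern on the opposite strand. A match says only that these letters are present.
Tnfaip3: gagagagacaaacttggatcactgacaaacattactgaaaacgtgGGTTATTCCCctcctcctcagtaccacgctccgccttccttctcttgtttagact
Nfkbia: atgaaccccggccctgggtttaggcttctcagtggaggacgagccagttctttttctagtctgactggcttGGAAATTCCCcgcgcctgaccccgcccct
Nfkb2: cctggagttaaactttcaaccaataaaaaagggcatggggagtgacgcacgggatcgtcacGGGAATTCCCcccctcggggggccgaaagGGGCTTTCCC

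Adhesion molecules of activated endothelium, which hold leukocytes on the vessel wall, fell in 5 of 7 tested genes, and with scaling by total count 2 fell and 1 rose. Icam1, the ligand of leukocyte integrins, had 331, 348 and 288 CPM at 6 h and 84.0, 63.1 and 60.6 CPM at 12 h (log2 change -2.22 ± 0.18 SE, edgeR adjusted p = 4.48e-06). Vcam1 had 58.8, 53.1 and 71.4 CPM at 6 h and 19.2, 34.3 and 27.7 CPM at 12 h (log2 change -1.17 ± 0.27 SE, edgeR adjusted p = 0.00418), and Sele, E-selectin, had 5.21, 4.69 and 5.21 CPM at 6 h and 0.156, 0.745 and 0.294 CPM at 12 h (log2 change -3.63 ± 0.56 SE, edgeR adjusted p = 0.000335). The summed level of the list was 487.7 to 537.1 CPM at 6 h and 157.0 to 174.1 CPM at 12 h. The groups did not overlap for the 3 genes or the sum. Vcam1 did not pass with scaling by total count (edgeR adjusted p 0.0529). Sele had a log2 change of -4.43 without 12 h replicate 2.

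Of 24 tested genes of the interferon gamma response, 13 fell and 3 rose. With scaling by total count 5 fell and 5 rose, and without single libraries the falls were 6 (6 h replicate 1), 8 (6 h replicate 3 or 12 h replicate 1) and 7 (12 h replicate 2). Irf1, an early interferon-induced factor, had 618, 514 and 403 CPM at 6 h and 112, 141 and 169 CPM at 12 h (log2 change -1.86 ± 0.24 SE, edgeR adjusted p = 8.64e-05). Nos2, the inducible nitric oxide synthase, had 69.4, 43.9 and 98.4 CPM at 6 h and 1.56, 2.52 and 4.25 CPM at 12 h (log2 change -4.66 ± 0.77 SE, edgeR adjusted p = 0.000517). Gbp2, a guanylate-binding GTPase, had 2285, 1532 and 1478 CPM at 6 h and 577, 639.6 and 829 CPM at 12 h (log2 change -1.37 ± 0.32 SE, edgeR adjusted p = 0.00444). All 3 were higher in each 6 h library than in any at 12 h. Gbp5 fell by 2.33 and Irf8, a myeloid interferon factor, by 2.27 on the log2 scale, and Socs1, the feedback inhibitor of JAK kinases, fell by 0.76. Socs1 lost the call without 6 h replicates 1 or 3 or 12 h replicates 1, 2 or 3 (edgeR adjusted p up to 0.225). Socs1 did not pass with scaling by total count (edgeR adjusted p 0.532).

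Of 23 tested genes of the type I interferon response, 2 rose and 1 fell (median 0.23). With scaling by total count 9 rose, in the fit of the 6 libraries alone 7 rose, and 0 did without 6 h replicate 2 or 3 or 12 h replicate 1. With the other 3 libraries left out in turn, or without the Con A 12h libraries, 1 rose. The falls were 0 to 2 over these fits. Isg15, a ubiquitin-like modifier, had 114, 67.4 and 98.9 CPM at 6 h and 167, 117 and 181 CPM at 12 h (log2 change 0.73 ± 0.35 SE, edgeR adjusted p = 0.113), and Irf7, the amplifier of interferon alpha genes, 138, 92.2 and 127 CPM at 6 h and 224, 162 and 219 CPM at 12 h (log2 change 0.76 ± 0.39 SE, edgeR adjusted p = 0.137). Neither passed, although the 12 h libraries were above the 6 h ones. Log2 changes that did not pass were -0.84 for Usp18, the protease that removes ISG15, -0.51 for Ifit1 and -0.44 for Rsad2, both antiviral effectors. Ifit2, of the same family as Ifit1, had 111, 54.7 and 109 CPM at 6 h and 8.21, 11.3 and 35.6 CPM at 12 h (log2 change -2.31 ± 0.70 SE, edgeR adjusted p = 0.0193). Stat2 rose by 0.50 and Ddx58, the RNA sensor RIG-I, by 0.86. Ifit2 lost the call without 6 h replicates 1 or 3 or 12 h replicates 1 or 2 (edgeR adjusted p up to 0.0734). Stat2 no longer passed without 6 h replicates 1, 2 or 3 or 12 h replicate 1 (edgeR adjusted p up to 0.108). Ddx58 lost the call without 6 h replicates 2 or 3 or 12 h replicates 1, 2 or 3 (edgeR adjusted p up to 0.131). Ddx58 also missed the threshold without the Con A 12h libraries (adjusted p = 0.0508). Ifit2 had a log2 change of -3.21 without 12 h replicate 3.

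In the list of MHC class I and immunoproteasome genes, 7 of 14 rose. Psmb8, an inducible catalytic subunit of the immunoproteasome, had 67.8, 53.5 and 61.1 CPM at 6 h and 181, 141 and 172 CPM at 12 h (log2 change 1.44 ± 0.22 SE, edgeR adjusted p = 0.000369), and Psmb9 and Psmb10, its partners, rose by 1.03 and 0.79. Psme2, of the proteasome activator, rose by 1.01, and H2-K1, a class I heavy chain, had 1347, 1080.4 and 1209.7 CPM at 6 h and 975, 919.8 and 1095 CPM at 12 h and did not pass (log2 change -0.28 ± 0.17 SE, edgeR adjusted p = 0.191). Of 9 class II genes 4 rose, 8 with scaling by total count, and 2 without 6 h replicate 1, 6 h replicate 2 or 12 h replicate 3. Ciita, the master activator of class II genes, had 1.87, 2.86 and 3.07 CPM at 6 h and 9.46, 8.13 and 11.99 CPM at 12 h (log2 change 1.92 ± 0.39 SE, edgeR adjusted p = 0.00198). Cd74, the invariant chain, had 64.7, 45.9 and 65.0 CPM at 6 h and 65.4, 64.8 and 91.7 CPM at 12 h and did not pass (log2 change 0.34 ± 0.29 SE, edgeR adjusted p = 0.376), and H2-DMa, a peptide exchange factor, rose by 1.67. Among constitutive proteasome subunits 3 of 22 rose (median 0.00), 1 without 6 h replicate 1 or 12 h replicate 1, and 14 with scaling by total count.

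Interferon-stimulated elements, searched as GAAA, 2 bases of any kind and GAAA on either strand, lie in 6 of the 9 promoters available for the interferon gamma genes that fell (66.7%) and in that of Igtp, the only one available for the 3 that rose, against 3.46% of all genes in the RefSeq table. Matches are thus present in genes of both directions. Shown in capitals are the matches of Gbp2 at chr3:142620559-142620658 (plus strand), Gbp5 at chr3:142496724-142496823 (plus strand) and Irgm1 at chr11:48871421-48871520 (minus strand), on GRCm38.p6. Those of Gbp2 and Gbp5 are on the opposite strand, and the pair of matches in Irgm1 overlap.
Gbp2: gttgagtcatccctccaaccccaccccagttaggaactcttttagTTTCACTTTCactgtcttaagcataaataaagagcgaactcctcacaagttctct
Gbp5: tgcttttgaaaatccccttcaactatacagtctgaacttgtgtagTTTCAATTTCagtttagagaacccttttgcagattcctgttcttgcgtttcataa
Irgm1: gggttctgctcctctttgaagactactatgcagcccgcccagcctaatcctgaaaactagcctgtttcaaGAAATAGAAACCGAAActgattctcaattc

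Most genes of the IL-6 receptor, STAT and SOCS list fell. Signals of IL-6 and growth hormone reach the nucleus through STAT factors, and SOCS proteins and CISH switch them off. Of 15 tested genes 14 fell and 1 rose, 0 without 6 h replicate 2. Socs2, the growth hormone feedback inhibitor, had 194, 181 and 173 CPM at 6 h and 6.15, 6.07 and 3.98 CPM at 12 h (log2 change -5.08 ± 0.41 SE, edgeR adjusted p = 3.51e-06). Socs3, the inhibitor of IL-6 signalling, had 323, 250.3 and 240.2 CPM at 6 h and 52.8, 108 and 53.8 CPM at 12 h (log2 change -1.92 ± 0.29 SE, edgeR adjusted p = 0.000275). Stat3, the acute-phase transducer, had 525, 451 and 456 CPM at 6 h and 142, 163 and 184 CPM at 12 h (log2 change -1.55 ± 0.15 SE, edgeR adjusted p = 1.37e-05). No 12 h library reached a 6 h library in these genes. Cish fell by 3.62, and the kinases Pim3 and Pim1 fell by 3.25 and 2.34 on the log2 scale.

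Of 24 tested genes of acute-phase proteins 7 rose and 4 fell, shares near those over all tested genes, and with scaling by total count 11 rose and 3 fell. Saa1, a serum amyloid A that shares much of its sequence with Saa2 so that reads may be split between them, had 3605, 3545 and 3051 CPM at 6 h and 8666, 8007 and 6742 CPM at 12 h (log2 change 1.20 ± 0.27 SE, edgeR adjusted p = 0.00361). Saa3, another serum amyloid A, had 2057, 1777 and 1318 CPM at 6 h and 5276, 2706 and 2740.1 CPM at 12 h (log2 change 1.06 ± 0.27 SE, edgeR adjusted p = 0.00871), highest in 12 h replicate 1. Orm1, orosomucoid, rose by 1.20 and Hp, haptoglobin, by 0.75. Lcn2, an iron-siderophore binder, had 4497, 4296 and 3948 CPM at 6 h and 8082, 5162 and 4484 CPM at 12 h. Fgb, a fibrinogen chain, had 12872, 12562 and 11688 CPM at 6 h and 9089, 16181 and 14042 CPM at 12 h. Neither passed (adjusted p = 0.223 and 0.823). Crp, the C-reactive protein gene, had 2086, 1472 and 1586 CPM at 6 h and 422, 545 and 649 CPM at 12 h (log2 change -1.67 ± 0.20 SE, edgeR adjusted p = 6.52e-05). Steap4, a metalloreductase induced by cytokines, fell from between 6223 and 6478 CPM to between 679.9 and 862 CPM, and Il1r1, the interleukin-1 receptor, fell by 2.58 on the log2 scale. Hp lost the call without 12 h replicate 1 (edgeR adjusted p up to 0.0536).

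Mt1 and Mt2 encode metallothioneins, which bind zinc and are induced by IL-6 and glucocorticoids. Mt1 had 6960.2, 7046 and 5682 CPM at 6 h and 3084, 2209 and 1322 CPM at 12 h (log2 change -1.57 ± 0.36 SE, edgeR adjusted p = 0.00419) and Mt2 4757, 4401 and 4137 CPM at 6 h and 1841, 1376 and 1019 CPM at 12 h (log2 change -1.65 ± 0.30 SE, edgeR adjusted p = 0.00106). The zinc importer gene Slc39a14 had 1139, 1113 and 989.6 CPM at 6 h and 245, 313 and 199 CPM at 12 h (log2 change -2.098 ± 0.24 SE, edgeR adjusted p = 4.12e-05). In total 5 of 8 genes of the list fell, 3 with scaling by total count. In the iron and heme list 7 of 14 fell and 2 rose, 4 and 3 with scaling by total count. Hamp, hepcidin, the hormone that blocks iron export, had 2095, 1742 and 1878 CPM at 6 h and 576, 377 and 124 CPM at 12 h (log2 change -2.41 ± 0.47 SE, edgeR adjusted p = 0.00163). Replicate 3 was the lowest at 12 h. Hmox1, heme oxygenase, had 616, 410.1 and 588 CPM at 6 h and 50.2, 34.8 and 36.8 CPM at 12 h (log2 change -3.73 ± 0.30 SE, edgeR adjusted p = 3.82e-06), and Alas1, the first enzyme of heme synthesis, fell by 1.52. Hjv, the hemojuvelin coreceptor that induces hepcidin, had 6.401, 7.13 and 7.82 CPM at 6 h and 74.3, 62.0 and 61.3 CPM at 12 h (log2 change 3.21 ± 0.22 SE, edgeR adjusted p = 1.32e-06), and Slc40a1, the iron exporter ferroportin, rose by 1.56. Without MSC the log2 changes of Mt1 and Mt2 were 0.30 and 0.07, but the difference between the changes did not pass (edgeR adjusted p = 0.103 and 0.0883).

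Markers of infiltrating and resident cells were summed in each library as RNA of marker genes, not as cell numbers. Monocyte and macrophage markers summed to 251.1 to 498.3 CPM at 6 h and 154.4 to 223.0 CPM at 12 h, with 6 h replicate 1 the highest. That sum is led by Cd14 and by Spp1, which is also in the cholangiocyte list. Gene by gene, 4 of 14 tested members rose and 2 fell, with a median log2 change of 0.40. NK and cytotoxic markers summed to 68.9 CPM in that library, 17.7 and 36.1 CPM in the other two at 6 h, and 15.2 to 25.3 CPM at 12 h. T cell markers summed to 22.6 to 30.4 CPM at 6 h and 13.7 to 15.4 CPM at 12 h. B cell and dendritic cell sums were below 20 CPM in each library. No marker list had a gene at 0 in all 6 libraries.

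The summed neutrophil list, led by Lrg1, which hepatocytes also make, was 1957 to 2668 CPM at 6 h and 2443 to 3049 CPM at 12 h. In that list 10 of 19 genes fell, 6 without 6 h replicate 1 or 12 h replicate 3. S100a8, a calprotectin subunit, had 35.5, 7.73 and 13.7 CPM at 6 h and 6.65, 8.34 and 5.94 CPM at 12 h (log2 change -1.44 ± 0.45 SE, edgeR adjusted p = 0.0221). S100a9, the other subunit, had 62.9, 13.7 and 25.2 CPM at 6 h and 12.4, 14.6 and 11.1 CPM at 12 h (log2 change -1.41 ± 0.45 SE, edgeR adjusted p = 0.0240). Replicate 1 was the highest at 6 h, and replicate 2 at 6 h lay within the 12 h range for both. Ngp, a granule protein, fell by 2.55 and Trem1, an amplifying receptor, by 3.22. Among T cell genes, 4 of 13 fell, against 20.2% of all tested genes. The falls were 2 with scaling by total count or without 6 h replicate 1, 12 h replicate 1 or 12 h replicate 3. The list's median of -0.18 turned to 0.38 with scaling by total count. Ctla4, an inhibitory receptor, fell by 3.86 and Cd28, a costimulatory one, by 1.504. Cd3e, of the T cell receptor complex, was below 1 CPM in each library and did not pass (adjusted p = 0.885). None of 8 NK and cytotoxic genes passed in edgeR, 1 had an unadjusted p under 0.05, and 0 rose and 1 fell in DESeq2. Gzmb, granzyme B, had 52.9, 11.999 and 25.9 CPM at 6 h and 8.50, 12.8 and 14.6 CPM at 12 h (log2 change -1.34 ± 0.51 SE, edgeR adjusted p = 0.0514). S100a8 and S100a9 lost the call without 6 h replicate 1 or 12 h replicates 1 or 3 (edgeR adjusted p up to 0.186 and 0.203). S100a8 and S100a9 did not pass with scaling by total count (edgeR adjusted p 0.109). S100a8 had a log2 change of -0.60 without 6 h replicate 1. S100a9 had a log2 change of -0.59 without 6 h replicate 1. Ngp had a log2 change of -1.88 without 6 h replicate 1. Trem1 had a log2 change of -2.34 without 6 h replicate 1. Ctla4 had a log2 change of -4.59 without 12 h replicate 2.

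Kupffer cell genes fell in 3 of 12, a share near that over all tested genes (20.2%). There were 0 falls without 6 h replicate 1 and 1 without 6 h replicate 3 or 12 h replicate 2. The median of -0.37 turned to 0.18, with 3 rises and 0 falls, when scaled by total count. Clec4f, the Kupffer lectin, had 15.0, 3.39 and 12.1 CPM at 6 h and 2.16, 3.29 and 5.83 CPM at 12 h (log2 change -1.43 ± 0.54 SE, edgeR adjusted p = 0.0484) and Vsig4, a complement receptor, 3.78, 1.02 and 2.46 CPM at 6 h and 0.886, 0.416 and 0.632 CPM at 12 h (log2 change -1.91 ± 0.63 SE, edgeR adjusted p = 0.0288). Marco, a scavenger receptor, had 7.20, 1.09 and 8.14 CPM at 6 h and 32.6, 5.67 and 6.91 CPM at 12 h. Cd5l had 16.5, 3.35 and 21.2 CPM at 6 h and 13.01, 8.30 and 14.9 CPM at 12 h. Neither passed, and 12 h replicate 1 was the highest for Marco. Among monocyte genes Cd14, the LPS coreceptor, fell by 2.38, while Ccr2, the receptor of Ccl2, and Plac8 rose by 1.64 and 1.30. B cell genes rose in 2 of 6 and dendritic cell genes in 2 of 6, against 20.6% of all tested genes. When 1 of the 6 libraries was left out these counts were 0 to 3 and 1 to 2. The B cell count was 0 without 6 h replicate 3 or 12 h replicate 3, and 1 without 6 h replicate 1 or 2 or 12 h replicate 2. The dendritic cell count was 1 without 6 h replicate 1 or 2 or 12 h replicate 3. Of the monocyte genes 4 of 14 rose, against 20.6% of all tested genes. The rises were 2 without 6 h replicate 2 or 3 or 12 h replicate 2 or 3. Clec4f lost the call without 6 h replicates 1 or 3 or 12 h replicates 1 or 2 (edgeR adjusted p up to 0.196). Vsig4 no longer passed without 6 h replicates 1 or 3 or 12 h replicates 2 or 3 (edgeR adjusted p up to 0.139). Clec4f and Vsig4 did not pass with scaling by total count (edgeR adjusted p 0.0758 to 0.174). Clec4f also missed the threshold in the 6 libraries alone (adjusted p = 0.0595) and without the Con A 12h libraries (adjusted p = 0.0504).

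Of 18 endothelial genes 7 rose and 4 fell, the falls being near their share over all tested genes (20.2%). Gpr182, a sinusoidal receptor, had 0.517, 1.09 and 0.678 CPM at 6 h and 6.65, 7.84 and 5.85 CPM at 12 h (log2 change 3.14 ± 0.38 SE, edgeR adjusted p = 6.22e-05) and Kdr, VEGF receptor 2, 1.51, 1.34 and 1.11 CPM at 6 h and 3.96, 6.55 and 5.40 CPM at 12 h (log2 change 2.01 ± 0.37 SE, edgeR adjusted p = 0.00109). Eng, endoglin, rose by 0.97, Clec4g, a sinusoidal lectin, fell by 1.90, and Stab2, a hyaluronan scavenger receptor, did not pass (log2 change -0.50, adjusted p = 0.216). Of 20 stellate and matrix genes 5 rose and 4 fell, shares near those over all tested genes, with 2 falls without 12 h replicate 1 or with scaling by total count. Col1a1, a fibrillar collagen, had 3.34, 4.91 and 2.46 CPM at 6 h and 5.004, 22.0 and 12.7 CPM at 12 h (log2 change 1.89 ± 0.46 SE, edgeR adjusted p = 0.00603). Col3a1, another, had 9.18, 11.2 and 5.14 CPM at 6 h and 17.2, 54.2 and 36.7 CPM at 12 h (log2 change 2.08 ± 0.41 SE, edgeR adjusted p = 0.00158), with 12 h replicate 2 the highest for both. Acta2, smooth muscle actin, had 2.19, 2.61 and 2.36 CPM at 6 h and 1.12, 24.7 and 0.678 CPM at 12 h, a single high library, and did not pass. Without that library its log2 change was -1.39 (edgeR adjusted p = 0.214). Timp1 also did not pass (0.06 for Timp1, adjusted p = 0.901). Reln, a stellate cell protein, fell by 1.96 and Col4a1, of basement membranes, by 1.22.

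The same library, replicate 2 at 12 h, was the highest for Krt19, a keratin of bile ducts, which had 0.795, 1.09 and 0.393 CPM at 6 h and 0.964, 7.27 and 1.45 CPM at 12 h (log2 change 2.08 ± 0.72 SE, edgeR adjusted p = 0.0356). Sox9, a cholangiocyte factor, did not pass (log2 change -0.39). Erythrocyte genes fell in 7 of 7 tested. Their summed level was 1302 to 1977 CPM at 6 h and 212.4 to 295.9 CPM at 12 h. Hbb-bt had 162, 259.8 and 253 CPM at 6 h and 27.0, 30.8 and 18.9 CPM at 12 h (log2 change -3.14 ± 0.50 SE, edgeR adjusted p = 0.000441), with the caution that the globin genes Hbb-bs, Hbb-bt and Hba-a2 have near-identical copies. Alas2, the erythroid heme enzyme, fell by 1.67. Of 8 tested genes used as stromal cell markers 3 rose and 3 fell, 3 and 0 with scaling by total count. Ly6a, the stem cell antigen Sca-1 of mice that endothelium and T cells also make, had 26.6, 11.9 and 25.2 CPM at 6 h and 93.6, 117 and 85.8 CPM at 12 h (log2 change 2.22 ± 0.39 SE, edgeR adjusted p = 0.000772), and Alcam fell by 0.74. Whether any of this RNA came from the injected cells was not tested. Krt19 lost the call without 6 h replicates 1 or 3 or 12 h replicate 2 (edgeR adjusted p up to 0.393). Alcam did not pass with scaling by total count (edgeR adjusted p 0.411). Krt19 also missed the threshold in the 6 libraries alone (adjusted p = 0.0586). Krt19 had a log2 change of 0.68 without 12 h replicate 2.

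Death receptor and BCL2 family genes fell in 11 of 21 and rose in 2, and with scaling by total count 4 fell and 4 rose. Without 6 h replicate 3 or 12 h replicate 1, 1 rose. Bcl2l1, the survival protein BCL-XL, had 248, 201 and 212 CPM at 6 h and 31.6, 34.7 and 36.7 CPM at 12 h (log2 change -2.68 ± 0.20 SE, edgeR adjusted p = 2.67e-06). Mcl1, another survival protein, fell by 0.86, Fas, the death receptor, by 1.30, and Bcl2l11, the killer protein BIM, fell by 1.996. Bik, a killer protein of the ER, had 0.398, 0.494 and 0.214 CPM at 6 h and 5.84, 2.96 and 3.95 CPM at 12 h (log2 change 3.51 ± 0.49 SE, edgeR adjusted p = 0.000167), and Bbc3, PUMA, did not pass (-0.17 for Bbc3, adjusted p = 0.773). In the necroptosis and pyroptosis list 2 rose and 2 fell of 13, shares near those over all tested genes. These counts were 5 and 1 with scaling by total count and 4 and 3 in the 6 libraries alone. There was 1 rise without 6 h replicate 2 or 3, and 1 fall without the filter on low counts or without 6 h replicate 1 or 3 or 12 h replicate 1 or 2. Ripk1, a kinase between survival and death signals, fell by 1.45 and Mlkl, the pore former of necroptosis, by 0.65. Pycard, the inflammasome adaptor, and Zbp1, a nucleic acid sensor, rose by 2.30 and 1.20. Log2 changes that did not pass were -1.40 for Nlrp3, 0.28 for Ripk3 and 0.12 for Gsdmd. Mlkl lost the call without 6 h replicates 1 or 3 or 12 h replicates 1 or 2 (edgeR adjusted p up to 0.135). Zbp1 no longer passed without 6 h replicates 2 or 3 (edgeR adjusted p up to 0.0775). Mcl1 and Mlkl did not pass with scaling by total count (edgeR adjusted p 0.194 to 0.694). Mlkl also missed the threshold without the filter on low counts (adjusted p = 0.0517).

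Genes of growth arrest mostly fell. Of 16 p53 targets and arrest genes 9 fell and 1 rose. Plk3, a stress kinase, had 711, 631 and 533 CPM at 6 h and 46.8, 32.0 and 38.0 CPM at 12 h (log2 change -4.01 ± 0.28 SE, edgeR adjusted p = 1.51e-06). Cdkn1a, the cell cycle inhibitor p21, had 154, 221 and 155 CPM at 6 h and 58.2, 80.2 and 64.6 CPM at 12 h (log2 change -1.38 ± 0.19 SE, edgeR adjusted p = 0.000145). Gadd45b, Gadd45g and Gadd45a, stress sensors, fell by 3.34, 2.50 and 3.31, Mdm2, the p53 ligase, by 0.95, and Ccng1 did not pass (0.19 for Ccng1, adjusted p = 0.589). Growth genes of G1 were mixed, with 6 falls and 2 rises in 16 (5 and 7 with scaling by total count), with 5 rises in the 6 libraries alone and 1 without 6 h replicate 2 or 12 h replicate 3. Egfr, the receptor of epidermal growth factor, had 1940.5, 1528 and 1705 CPM at 6 h and 374, 396 and 499 CPM at 12 h (log2 change -2.03 ± 0.27 SE, edgeR adjusted p = 0.000125), Hbegf, its ligand, fell by 3.65, Ccne1, a cyclin of S phase entry, by 1.36, and Ccnd1 did not pass (-0.25 for Ccnd1, adjusted p = 0.624). Mcm2, of the replicative helicase, rose by 1.46, Rrm2, of ribonucleotide reductase, fell by 2.61, and Mcm5 and Pcna did not pass (0.84 for Mcm5, adjusted p = 0.0804, and -0.13 for Pcna, adjusted p = 0.607). DNA replication genes had 3 rises and 2 falls in 22, against 20.6% and 20.2% over all tested genes. With scaling by total count they had 13 and 1. DESeq2 gave 5 rises and the 6 libraries alone 6, and 1 fell without 6 h replicate 2 or 3 or 12 h replicate 1. The mitosis genes Mki67 and Ccnb1 were below 5 CPM in each library and fell by 1.35 and 1.58. They were the 2 falls among 17 genes of the list, against 20.2% of all tested genes. Top2a did not pass (log2 change -0.74). Mdm2 lost the call without 6 h replicate 1 (edgeR adjusted p up to 0.0609). Ccnb1 no longer passed without 6 h replicates 1, 2 or 3 or 12 h replicates 1 or 3 (edgeR adjusted p up to 0.226). Mdm2, Mki67 and Ccnb1 did not pass with scaling by total count (edgeR adjusted p 0.0651 to 0.239). Ccnb1 also missed the threshold with DESeq2 (adjusted p = 0.0569), without the filter on low counts (adjusted p = 0.0918), in the 6 libraries alone (adjusted p = 0.0756) and without the Con A 12h libraries (adjusted p = 0.0625). Ccnb1 had a log2 change of -2.34 without 12 h replicate 2.

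Chaperones of the endoplasmic reticulum (ER) rose together. They fold secreted proteins, and the unfolded protein response induces them through ATF6 and XBP1. Of 21 tested genes 16 rose and 1 fell (median 1.25), 17 and 1 with scaling by total count. Hspa5, the master chaperone BiP, had 577, 806 and 952 CPM at 6 h and 1558, 1442 and 1269 CPM at 12 h (log2 change 0.87 ± 0.23 SE, edgeR adjusted p = 0.00937). Sdf2l1, a cofactor of BiP, had 20.2, 18.6 and 16.95 CPM at 6 h and 207, 140.3 and 136 CPM at 12 h (log2 change 3.12 ± 0.41 SE, edgeR adjusted p = 0.000105). Creld2, an ER protein disulphide isomerase, had 67.4, 56.0 and 67.0 CPM at 6 h and 349.8, 284 and 218 CPM at 12 h (log2 change 2.16 ± 0.34 SE, edgeR adjusted p = 0.000423). Each 12 h library lay above each 6 h library in all 3. Pdia4, a disulphide isomerase, rose by 2.05, Sel1l, an adaptor of the degradation complex, by 1.66 and Dnajb11, a BiP cochaperone, by 1.42. Derl3, a channel component of ER-associated degradation, had 9.78, 1.13 and 0.607 CPM at 6 h and 133, 33.1 and 40.5 CPM at 12 h (log2 change 4.18 ± 0.98 SE, edgeR adjusted p = 0.00483), with replicate 1 the highest at both times. Without 6 h replicate 1 its log2 change was 6.32. The only fall was that of Xbp1, named after its value was seen (log2 change -1.06 for Xbp1, adjusted p = 0.000285). The changes without MSC were 0.55 for Hspa5, 3.54 for Sdf2l1, 2.08 for Creld2 and 5.53 for Derl3. Derl3 had a log2 change of 6.32 without 6 h replicate 1 and 3.29 without 12 h replicate 1.

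The promoters of these genes were searched for the ER stress response element, a motif added after the rise of the list had been seen. It reads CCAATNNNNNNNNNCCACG on either strand and contains a CCAAT box. It is present in 8 of the 14 members that rose and have a promoter entry (57.1%), against 35 of 27025 genes (0.13%). Of all tested members with an entry 9 of 19 hold it (47.4%), among them Canx, which did not pass. Since the motif was picked with this list and its rise in view, these shares are no test of a link to the rise. The sequences below mark it in capitals for 5 of the members that rose, on GRCm38.p6. They are Hspa5 at chr2:34771984-34772083 (plus), Hsp90b1 at chr10:86705493-86705592 (minus), Calr at chr8:84847035-84847134 (minus), Creld2 at chr15:88819479-88819578 (plus) and Derl3 at chr10:75893201-75893300 (plus). In Hspa5 the element reads CCAAT to CCACG towards the start, and in the other 4 the capitals show it on the opposite strand.
Hspa5: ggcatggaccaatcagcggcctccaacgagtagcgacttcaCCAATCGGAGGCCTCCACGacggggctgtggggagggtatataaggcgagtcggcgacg
Hsp90b1: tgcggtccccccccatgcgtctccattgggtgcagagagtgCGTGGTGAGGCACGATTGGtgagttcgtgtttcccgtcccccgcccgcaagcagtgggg
Calr: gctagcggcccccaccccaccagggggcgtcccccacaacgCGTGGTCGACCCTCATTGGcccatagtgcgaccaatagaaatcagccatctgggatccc
Creld2: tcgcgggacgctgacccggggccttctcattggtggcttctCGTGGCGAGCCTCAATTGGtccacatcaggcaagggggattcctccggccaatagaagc
Derl3: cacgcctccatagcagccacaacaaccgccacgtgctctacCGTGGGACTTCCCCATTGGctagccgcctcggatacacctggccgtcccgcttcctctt

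**Figure D3:**
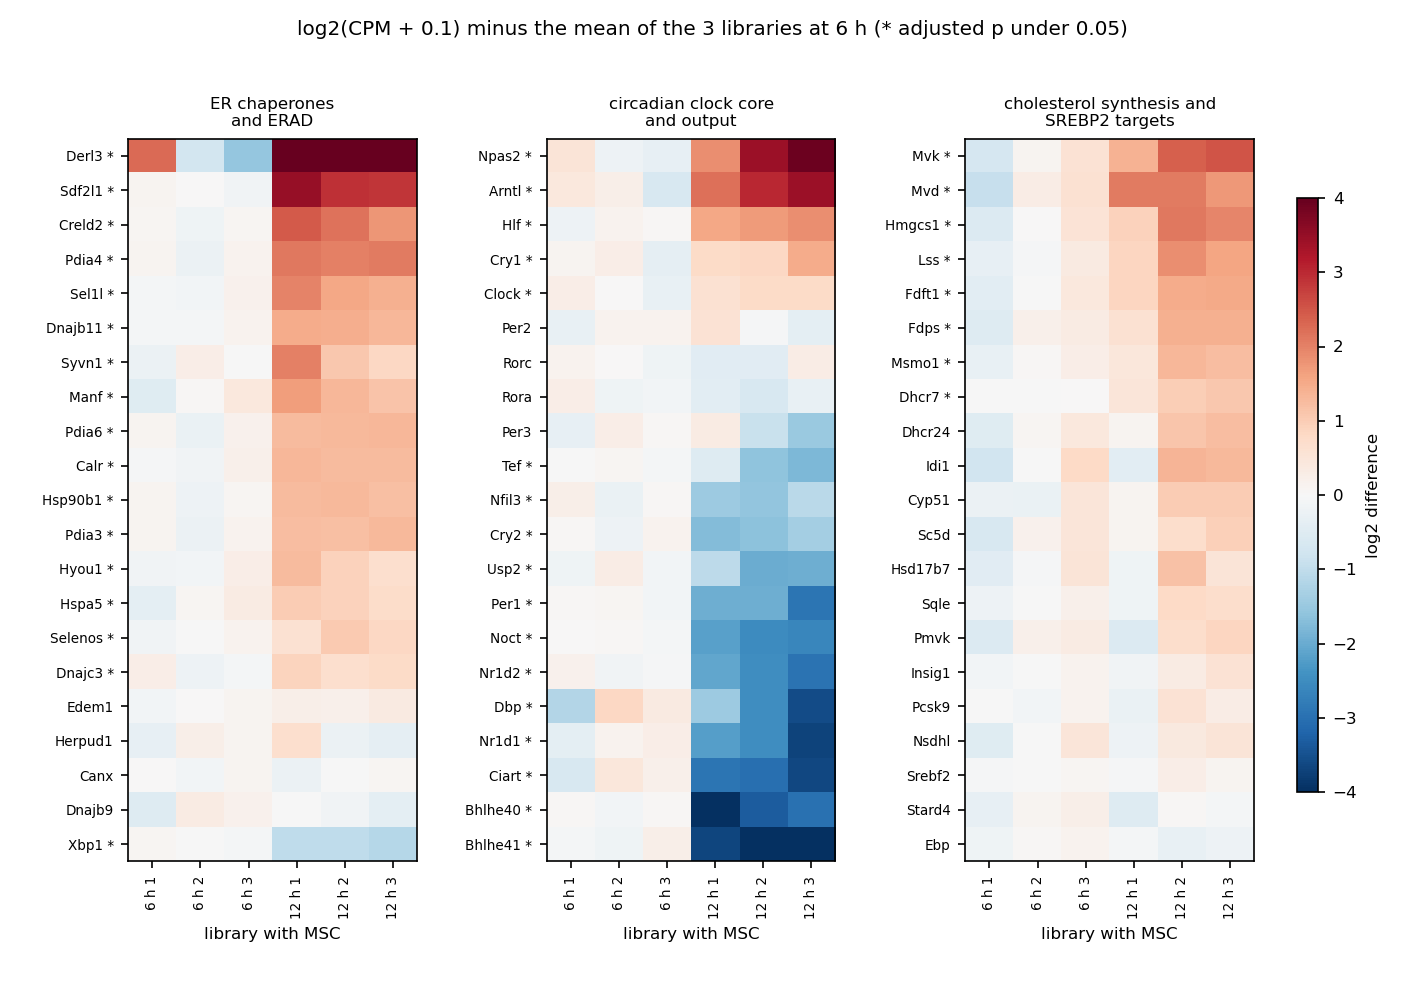
Heat map of log2(CPM + 0.1) minus the mean of the 3 libraries at 6 h, for tested genes (rows) of the ER chaperone, circadian clock and cholesterol synthesis lists in the 6 libraries with MSC (columns). Red is higher and blue lower than the 6 h mean, and an asterisk marks an adjusted p under 0.05 in edgeR. The 16 ER genes that rose are red in each 12 h library and Xbp1 is blue, clock genes divide into rises from Npas2 to Clock and falls down to Bhlhe41, and 12 h replicate 1 is the lowest of its group in most cholesterol genes. With scaling by total count the medians of the 3 lists become 1.79, -0.83 and 1.08, with the same signs.

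Other stress programmes did not follow the ER chaperones. Among targets of ATF4 in the integrated stress response, 9 of 20 fell and 3 rose, 1 of them without 6 h replicate 1 or 12 h replicate 2. The highest log2 change of the list was 5.55. The PPAR alpha list below has the same highest value, and its only rise is that of Fgf21. Gdf15, a stress hormone, had 234, 272 and 276 CPM at 6 h and 9.43, 11.2 and 25.8 CPM at 12 h (log2 change -4.07 ± 0.40 SE, edgeR adjusted p = 1.60e-05). Ddit4, an inhibitor of mTORC1, fell by 4.26, Ppp1r15a, a phosphatase subunit that ends the response, by 3.03, Chac1, which degrades glutathione, by 2.71, Trib3 by 0.83 and Atf4 itself by 0.58. Asns, asparagine synthetase, had 5.09, 6.42 and 4.71 CPM at 6 h and 10.7, 25.6 and 20.5 CPM at 12 h (log2 change 1.81 ± 0.58 SE, edgeR adjusted p = 0.0263), and Ddit3, CHOP, did not pass (0.83 for Ddit3, adjusted p = 0.171). Heat shock genes had 2 rises and 4 falls in 17, against 20.6% and 20.2% over all tested genes. With scaling by total count they had 6 rises and 0 falls. When a library other than 12 h replicate 2 was left out, 1 rose. Hspd1, the mitochondrial chaperonin, had 274, 308 and 299 CPM at 6 h and 85.0, 142 and 163 CPM at 12 h (log2 change -1.18 ± 0.32 SE, edgeR adjusted p = 0.0110), and Hspa9 fell by 0.91. Hspa1b rose by 1.43 and Hspa1a, a near-identical copy, did not pass (0.14 for Hspa1a, adjusted p = 0.844), so reads may be split between them. Hsph1 rose by 0.75 and Dnajb1 did not pass (0.55 for Dnajb1, adjusted p = 0.115). Trib3 lost the call without 6 h replicates 1 or 3 or 12 h replicates 2 or 3 (edgeR adjusted p up to 0.166). Asns no longer passed without 6 h replicates 1, 2 or 3 or 12 h replicates 2 or 3 (edgeR adjusted p up to 0.0829). Hspa1b lost the call without 6 h replicate 1 (edgeR adjusted p up to 0.0531). Hsph1 no longer passed without 6 h replicates 2 or 3 or 12 h replicates 1 or 3 (edgeR adjusted p up to 0.135). Trib3, Atf4, Hspd1 and Hspa9 did not pass with scaling by total count (edgeR adjusted p 0.129 to 0.858).

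The antioxidant genes controlled by NRF2 had 10 falls in 20, and 7 falls and 2 rises with scaling by total count, where the median turned from -0.51 to 0.02. Gstm3 and Gsta2, glutathione transferases, fell by 4.11 and 3.53, and Txnrd1, thioredoxin reductase, by 1.11. The commonly used indicator genes Nqo1, Gclc, Gclm and Srxn1 did not pass, with log2 changes of -0.07, 0.11, 0.21 and -0.10. The genes that fell in this list include glutathione transferases that are also part of liver detoxification.

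Hypoxia and glycolysis genes fell in 17 of 22, and in 13 with scaling by total count. Pfkfb3, which makes the activator of glycolysis fructose 2,6-bisphosphate, had 988, 718 and 1071 CPM at 6 h and 33.3, 32.7 and 27.6 CPM at 12 h (log2 change -4.89 ± 0.30 SE, edgeR adjusted p = 8.61e-07). Vegfa, the endothelial growth factor, had 305, 290.4 and 277 CPM at 6 h and 73.8, 56.5 and 60.9 CPM at 12 h (log2 change -2.19 ± 0.17 SE, edgeR adjusted p = 2.67e-06). Slc2a1, the glucose transporter GLUT1, had 108, 88.4 and 110.5 CPM at 6 h and 17.9, 12.9 and 15.3 CPM at 12 h (log2 change -2.74 ± 0.35 SE, edgeR adjusted p = 9.75e-05). The times did not overlap in any of the 3. Egln3, an oxygen sensor, fell by 3.82 and Hk2, a hexokinase, by 2.46. Ldha, lactate dehydrogenase, did not pass (-0.17 for Ldha, adjusted p = 0.592). In gluconeogenesis and glycogen genes 9 of 18 fell and 2 rose, 1 without 6 h replicate 1 or 2 or 12 h replicate 2. G6pc, given above with a log2 change of 3.81, was among the rises. Tat, tyrosine aminotransferase, had 2915, 2626 and 2290.3 CPM at 6 h and 586, 626 and 760.4 CPM at 12 h (log2 change -1.99 ± 0.22 SE, edgeR adjusted p = 3.28e-05), and Got1, Ugp2 and Gbe1 fell by 2.53, 1.45 and 1.599. Pck1, the rate-limiting enzyme of gluconeogenesis, had 906, 825 and 904 CPM at 6 h and 658, 564 and 1047 CPM at 12 h, overlapping between times (log2 change -0.22 ± 0.24 SE, edgeR adjusted p = 0.492), and Ppargc1a, its coactivator, did not pass (-0.29 for Ppargc1a, adjusted p = 0.496).

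Most genes of fatty acid use fell. Of 24 genes of PPAR alpha, fasting and ketogenesis 15 fell and 1 rose. With scaling by total count 9 fell and 4 rose. Acaa1b, a peroxisomal thiolase, had 334, 649 and 509 CPM at 6 h and 45.5, 24.3 and 34.6 CPM at 12 h (log2 change -3.84 ± 0.32 SE, edgeR adjusted p = 4.48e-06). Ppara, the receptor itself, had 25.9, 48.0 and 50.7 CPM at 6 h and 9.70, 19.3 and 16.2 CPM at 12 h (log2 change -1.46 ± 0.28 SE, edgeR adjusted p = 0.00139). Cyp4a10, a fatty acid hydroxylase and PPAR alpha target, had 482, 538 and 580.1 CPM at 6 h and 239.8, 71.0 and 33.9 CPM at 12 h (log2 change -2.21 ± 0.54 SE, edgeR adjusted p = 0.00631). Cyp4a14, its close relative, had 167, 593 and 663 CPM at 6 h and 208, 36.7 and 15.4 CPM at 12 h (log2 change -2.45 ± 0.82 SE, edgeR adjusted p = 0.0314). For Cyp4a14 the 12 h replicate 1 lay above the 6 h replicate 1, so the times overlapped. Pdk4, which spares glucose, fell by 2.94, Ehhadh by 2.12 and Cpt1a, the gate of mitochondrial oxidation, by 0.78. The rise was that of Fgf21, a fasting hormone, named after its value was seen. It had at most 3 counts in a library at 6 h, and 2.24, 2.54 and 0.904 CPM at 12 h. Cyp4a14 lost the call without 6 h replicates 2 or 3 or 12 h replicates 2 or 3 (edgeR adjusted p up to 0.105). Cpt1a no longer passed without 12 h replicate 1 (edgeR adjusted p up to 0.0537). Cyp4a14 and Cpt1a did not pass with scaling by total count (edgeR adjusted p 0.0566 to 0.379). Cyp4a14 also missed the threshold in the 6 libraries alone (adjusted p = 0.0587). Cyp4a10 had a log2 change of -3.33 without 12 h replicate 1. Cyp4a14 had a log2 change of -4.18 without 12 h replicate 1.

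Lipid synthesis divided between fatty acids and sterols. Of 19 genes of fatty acid and triglyceride synthesis 10 fell and 2 rose, 5 and 3 with scaling by total count. With DESeq2's size factors, TMM factors without mitochondrially encoded genes, or without the Con A 12h libraries, 6 h replicate 1 or 2 or 12 h replicate 2 or 3, 1 rose. Scd1, stearoyl-CoA desaturase, had 1244, 5348 and 3810.5 CPM at 6 h and 419, 409 and 705 CPM at 12 h (log2 change -2.76 ± 0.46 SE, edgeR adjusted p = 0.000540), with replicate 1 the lowest at 6 h. Lpin1, a phosphatidate phosphatase, fell by 3.53, Thrsp by 3.31 and Elovl6, an elongase, by 2.42, whereas Fasn, fatty acid synthase, and Srebf1, its activator, did not pass (-0.13 for Fasn, adjusted p = 0.701, and 0.00 for Srebf1, adjusted p = 0.995). Of 23 cholesterol genes 8 rose, 13 without 12 h replicate 1 and 16 with scaling by total count. Mvk, mevalonate kinase, had 4.89, 8.58 and 11.8 CPM at 6 h and 20.9, 42.1 and 45.4 CPM at 12 h (log2 change 2.102 ± 0.36 SE, edgeR adjusted p = 0.000647). Hmgcs1, HMG-CoA synthase, had 115, 169.7 and 250.3 CPM at 6 h and 323, 731 and 656 CPM at 12 h (log2 change 1.68 ± 0.39 SE, edgeR adjusted p = 0.00450), and Lss, lanosterol synthase, 22.3, 27.1 and 36.1 CPM at 6 h and 50.8, 102 and 83.2 CPM at 12 h (log2 change 1.46 ± 0.25 SE, edgeR adjusted p = 0.000698). Replicate 1 was the lowest at both times in these 3 genes. Fdft1 and Mvd rose by 1.28 and 1.84, and Sqle did not pass (0.50 for Sqle, adjusted p = 0.182).

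Bile acid genes fell in 13 of 20 cases and rose in 1, that of Nr0b2, against 3 with scaling by total count and 2 without the Con A 12h libraries. Abcb11, the bile salt export pump, had 293, 281 and 302 CPM at 6 h and 71.1, 96.7 and 139 CPM at 12 h (log2 change -1.51 ± 0.26 SE, edgeR adjusted p = 0.000676). Slc10a1, the uptake carrier NTCP, had 197, 222 and 285 CPM at 6 h and 60.3, 95.4 and 104 CPM at 12 h (log2 change -1.44 ± 0.29 SE, edgeR adjusted p = 0.00219). Akr1d1, a reductase of bile acid synthesis, fell by 2.61, Abcc3 by 2.04 and Abcb4, the phospholipid floppase, by 1.58. Cyp7a1, the rate-limiting enzyme of bile acid synthesis, was at 1.35, 2.36 and 3.997 CPM at 6 h and 0.573, 0.438 and 0.836 CPM at 12 h (log2 change -2.06 ± 0.75 SE, edgeR adjusted p = 0.0433). Cyp8b1, which makes cholic acid, did not pass (-0.90 for Cyp8b1, adjusted p = 0.207). Cyp7a1 lost the call without 6 h replicates 2 or 3 or 12 h replicates 1, 2 or 3 (edgeR adjusted p up to 0.176). Cyp7a1 did not pass with scaling by total count (edgeR adjusted p 0.0896).

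Drug-metabolising enzymes fell in nearly the whole list. In a list of 24 chosen genes, P450 genes of families 1 to 3 and their reductase, 20 fell and 1 rose, 16 and 1 with scaling by total count. The list does not hold Cyp2u1, a P450 gene of family 2 that rose by 3.83, as given above. Cyp2e1, the ethanol-inducible enzyme, had 5186, 5645 and 5980.4 CPM at 6 h and 1139, 1182 and 1350.2 CPM at 12 h (log2 change -2.19 ± 0.27 SE, edgeR adjusted p = 6.94e-05). Cyp3a11, the main murine CYP3A, had 4637, 4144 and 4588 CPM at 6 h and 619.6, 834 and 912 CPM at 12 h (log2 change -2.50 ± 0.35 SE, edgeR adjusted p = 0.000178). Cyp2c29 had 1159.7, 1436 and 1351 CPM at 6 h and 51.0, 194 and 202 CPM at 12 h (log2 change -3.14 ± 0.48 SE, edgeR adjusted p = 0.000318). The 6 h libraries lay at several times the 12 h level in each. Por, the electron donor of all microsomal P450 enzymes, fell by 3.27, Cyp2a5 by 4.36, Cyp1a2 by 2.31 and Cyp2b10 by 1.62. Members of the Cyp2c and Cyp2a clusters resemble each other, and reads may be split between them. Conjugation enzymes fell in 17 of 21, with log2 changes of -3.07 for Sult2a8, -2.45 for Ugt3a1, -1.13 for Ugt1a1, the bilirubin transferase, and -1.11 for Sult1a1, and Gstp1 did not pass (-0.61 for Gstp1, adjusted p = 0.145). Cyp2b10 lost the call without 6 h replicate 1 (edgeR adjusted p up to 0.0543). Ugt1a1 did not pass with scaling by total count (edgeR adjusted p 0.0654).

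The urea cycle and amino acid breakdown list fell in 17 of 21 genes. Cps1, the entry enzyme of the urea cycle, had 2074, 2319 and 2298 CPM at 6 h and 282, 428 and 779 CPM at 12 h (log2 change -2.17 ± 0.33 SE, edgeR adjusted p = 0.000335), and Ass1, the next rate-limiting step, 2172, 2521 and 2002 CPM at 6 h and 324, 444 and 766 CPM at 12 h (log2 change -2.13 ± 0.37 SE, edgeR adjusted p = 0.000813). In both, replicate 3 was the highest at 12 h. Arg1, the last step, had 524, 785 and 501 CPM at 6 h and 712, 791 and 887 CPM at 12 h and did not pass (log2 change 0.40 ± 0.23 SE, edgeR adjusted p = 0.186). Glul, the pericentral glutamine synthetase, had 1557, 1773 and 2076 CPM at 6 h and 383, 494 and 410.3 CPM at 12 h (log2 change -2.07 ± 0.29 SE, edgeR adjusted p = 0.000177), and Sds, Aass and Gls2 fell by 2.90, 2.24 and 1.73. Secreted hepatocyte proteins fell in 15 of 25, but 2 fell and 1 rose with scaling by total count, and 4 to 7 fell when a library other than 12 h replicate 3 was left out. Alb had 57056, 54531 and 51967 CPM at 6 h and 26461, 31424 and 33135 CPM at 12 h (log2 change -0.85 ± 0.26 SE, edgeR adjusted p = 0.0220), Rbp4, the retinol carrier, fell by 1.25, and Apoa1 did not pass (-0.77 for Apoa1, adjusted p = 0.0756). Among hepatocyte transcription factors 5 rose and 6 fell of 17, 8 and 2 with scaling by total count. Cebpb, an acute-phase factor, had 414, 382 and 416 CPM at 6 h and 119, 84.6 and 78.7 CPM at 12 h (log2 change -2.103 ± 0.21 SE, edgeR adjusted p = 1.57e-05), Hnf4a fell by 0.63, Tcf7l2 rose by 1.15, and Cebpa fell by 0.43, a sign that total-count scaling turns to 0.10. Alb lost the call without 6 h replicates 1 or 2 or 12 h replicates 1 or 2 (edgeR adjusted p up to 0.0828). Cebpa no longer passed when any 1 of the 6 libraries was left out (edgeR adjusted p up to 0.171). Alb, Hnf4a and Cebpa did not pass with scaling by total count (edgeR adjusted p 0.186 to 0.693). Cebpa also missed the threshold without the filter on low counts (adjusted p = 0.0928) and without the Con A 12h libraries (adjusted p = 0.0517).

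The growth hormone and IGF axis fell in 12 of 16 genes and rose in 1, with 8 falls under scaling by total count. The rise, of Serpina12, named after its value was seen (log2 change 1.16 ± 0.41 SE, edgeR adjusted p = 0.0381), did not pass without 6 h replicate 1 or 2, 12 h replicate 1 or 3, or the Con A 12h libraries. Igf1, the circulating growth factor made by hepatocytes, had 391.7, 483 and 518 CPM at 6 h and 249.9, 209.7 and 206 CPM at 12 h (log2 change -1.06 ± 0.22 SE, edgeR adjusted p = 0.00262). Ghr, the growth hormone receptor, had 264, 256 and 314 CPM at 6 h and 104, 132 and 158 CPM at 12 h (log2 change -1.08 ± 0.23 SE, edgeR adjusted p = 0.00258), and Igfals, the stabiliser of circulating IGF, 24.4, 26.1 and 45.9 CPM at 6 h and 9.64, 8.48 and 13.8 CPM at 12 h (log2 change -1.59 ± 0.32 SE, edgeR adjusted p = 0.00186). The times did not overlap in these 3 genes. Igfbp2 fell by 2.31 on the log2 scale. Without MSC the log2 change of Igf1 was 0.18, and the difference of the changes did not pass (edgeR adjusted p = 0.0945). Ghr did not pass with scaling by total count (edgeR adjusted p 0.0729).

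Clock genes moved in opposite directions. In the clock, CLOCK or NPAS2 pairs with BMAL1 (Arntl) to switch on Per, Cry, Nr1d and Dbp genes, whose products repress the pair, and NR1D1 and NR1D2 repress Arntl and Npas2. Of 21 tested genes 5 rose and 12 fell (5 and 11 with scaling by total count). Arntl had 2.31, 2.01 and 1.07 CPM at 6 h and 8.21, 14.7 and 19.3 CPM at 12 h (log2 change 2.97 ± 0.62 SE, edgeR adjusted p = 0.00245). Npas2 had 0.596, 0.318 and 0.286 CPM at 6 h and 1.67, 5.08 and 7.14 CPM at 12 h (log2 change 3.53 ± 0.54 SE, edgeR adjusted p = 0.000316). For both, replicate 1 was the lowest at 12 h and still above all libraries at 6 h. Cry1, a repressor, had 4.25, 4.76 and 3.10 CPM at 6 h and 6.91, 7.10 and 11.3 CPM at 12 h (log2 change 1.06 ± 0.30 SE, edgeR adjusted p = 0.0145). In the other arm Nr1d1 had 53.2, 76.7 and 84.8 CPM at 6 h and 15.0, 12.6 and 5.31 CPM at 12 h (log2 change -2.70 ± 0.35 SE, edgeR adjusted p = 0.000106), and Per1 84.2, 86.6 and 75.2 CPM at 6 h and 21.2, 21.2 and 10.6 CPM at 12 h (log2 change -2.21 ± 0.24 SE, edgeR adjusted p = 3.02e-05). Dbp, an output factor, had 1.87, 7.73 and 5.57 CPM at 6 h and 1.54, 0.701 and 0.271 CPM at 12 h (log2 change -2.61 ± 0.59 SE, edgeR adjusted p = 0.00396). The 6 h libraries were higher for Nr1d1, Per1 and Dbp, although 6 h replicate 1 of Dbp, the lowest, lay close to 12 h replicate 1. Bhlhe40 and Bhlhe41, repressors of E-box genes, fell by 3.44 and 4.53, Nr1d2 by 2.49, Noct, a deadenylase, by 2.44, and Nfil3 by 1.37. Per2 had 12.4, 16.7 and 16.8 CPM at 6 h and 22.7, 14.8 and 11.5 CPM at 12 h and did not pass (log2 change 0.09 ± 0.29 SE, edgeR adjusted p = 0.825). Without MSC the log2 changes were 1.59 for Arntl, 3.45 for Npas2, -1.39 for Nr1d1 and 0.07 for Cry1, and the difference did not pass in any of the 4 (edgeR adjusted p between 0.188 and 0.967). Cry1 lost the call without 6 h replicate 3 or 12 h replicate 3 (edgeR adjusted p up to 0.0590). Dbp had a log2 change of -3.36 without 12 h replicate 1.

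The clock's E-box, CACGTG, is present in the promoters of 4 of 11 clock genes that fell (36.4%) and 1 of 5 that rose (20%), against 6.86% of all genes. The genes that fell are Per1, Tef, Bhlhe41 and Ciart, and the gene that rose is Cry1. Shown are 3 of these promoters on GRCm38.p6 with the E-boxes in capitals, Per1 at chr11:69098736-69098835 (plus), Cry1 at chr10:85185062-85185161 (minus) and Ciart at chr3:95882256-95882355 (minus). The stretch of Ciart holds 3 matches and each of the other stretches 1.
Per1: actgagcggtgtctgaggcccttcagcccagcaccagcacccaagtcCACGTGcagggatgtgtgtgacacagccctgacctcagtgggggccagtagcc
Cry1: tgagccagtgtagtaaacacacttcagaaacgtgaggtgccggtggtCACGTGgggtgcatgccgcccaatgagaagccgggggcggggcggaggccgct
Ciart: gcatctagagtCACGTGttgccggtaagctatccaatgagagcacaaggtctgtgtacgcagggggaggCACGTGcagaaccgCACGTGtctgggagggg

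None of 27 ribosomal protein genes passed in edgeR, 1 had an unadjusted p under 0.05, and DESeq2 called 1 fall (median -0.02), while 15 rose with scaling by total count, and 2 rose and 1 fell in the fit of the 6 libraries alone. Rplp0, a stalk protein, had 432, 426 and 421 CPM at 6 h and 414, 434 and 411 CPM at 12 h (log2 change -0.02 ± 0.15 SE, edgeR adjusted p = 0.913), and its sign turned to 0.51 under total count. Rps4x and Rpl27 had the smallest adjusted p (-0.37 for Rps4x, adjusted p = 0.0643, and 0.38 for Rpl27, adjusted p = 0.140). Nuclear respiratory chain genes fell in 12 of 19, none with scaling by total count, 6 without 6 h replicate 3 and 7 without 12 h replicate 1. Log2 changes were -0.73 for Uqcrc1 and -0.77 for Sdhb, subunits of complexes III and II. Mitochondrially encoded genes fell in 4 of 13, in 1 with scaling by total count or when any 1 of the 6 libraries was left out, in 8 with DESeq2, and in 12 in the fit of the 6 libraries alone or without the Con A 12h libraries. mt-Nd1, of complex I, had 12919, 11175 and 10661 CPM at 6 h and 5829.8, 4169.5 and 3602 CPM at 12 h (log2 change -1.35 ± 0.48 SE, edgeR adjusted p = 0.0403). mt-Co1, of complex IV, had 44117, 40767 and 37655 CPM at 6 h and 21901, 19709 and 20178 CPM at 12 h and did not pass (log2 change -0.99 ± 0.45 SE, edgeR adjusted p = 0.0987). In both the groups did not overlap. mt-Nd1 lost the call when any 1 of the 6 libraries was left out (edgeR adjusted p up to 0.127). Uqcrc1, Sdhb and mt-Nd1 did not pass with scaling by total count (edgeR adjusted p 0.0990 to 0.342).

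The same interval was also measured without MSC, in other libraries, which allows a test of whether the change over time differed. The difference passed for 18 genes (0.126% of those tested), 9 with a higher and 9 with a lower change with MSC, and 2401 genes had an unadjusted p under 0.05. DESeq2 called 655. Of the 5816 genes called over time with MSC, 5497 (94.5%) had the same sign without MSC. The libraries without MSC at 12 h varied in their mitochondrial share (5.59%, 17.35% and 24.9%), and its part in the difference was not tested.

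**Figure D4:**
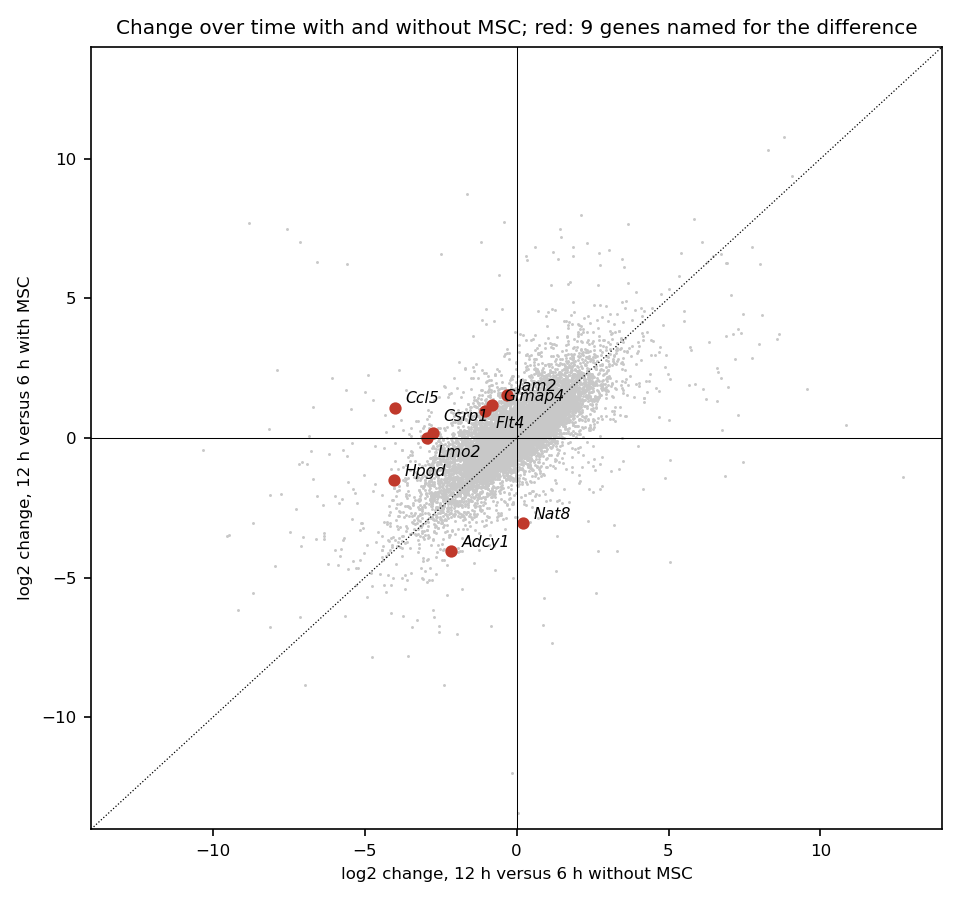
Log2 change from 6 h to 12 h without MSC (horizontal axis) and with MSC (vertical axis) for all tested genes (grey points). The 9 genes named for the difference are red and labelled, and the dotted line marks equal change. Most genes lie along the line. Ccl5, Csrp1, Flt4, Gimap4 and Jam2 lie above 0 with and below 0 without MSC. Of these, Ccl5 and Csrp1 did not pass with MSC and Jam2 did not pass without. Adcy1 and Nat8 lie below the line. Nat8 lies below 0 with MSC and above 0 without, where it did not pass.

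Of the 9 genes named for the difference, Lmo2, Csrp1 and Ccl5 fell without MSC and did not pass with it. Lmo2, a LIM-only cofactor used in blood and vessel development, had 4.06, 3.49 and 4.46 CPM at 6 h and 3.78, 3.85 and 4.34 CPM at 12 h with MSC, against 12.2, 29.3 and 23.1 CPM at 6 h and 2.60, 2.07 and 3.81 CPM at 12 h without (difference of log2 changes 2.93 ± 0.43 SE, edgeR adjusted p = 0.0200). Its level with MSC was flat and low at both times. Csrp1, a LIM protein of the cytoskeleton, had 14.4, 12.99 and 15.0 CPM at 6 h and 10.4, 20.2 and 17.3 CPM at 12 h with MSC and 26.2, 45.2 and 28.6 CPM at 6 h and 5.003, 4.40 and 5.51 CPM at 12 h without (difference 2.92 ± 0.36 SE, edgeR adjusted p = 0.00911). Ccl5 had 15.3, 29.8 and 21.7 CPM at 6 h and 0.485, 1.31 and 2.44 CPM at 12 h without MSC (difference 5.09 ± 0.84 SE, edgeR adjusted p = 0.0432), a fall where the levels with MSC given above overlapped between times. Hpgd, which inactivates prostaglandins, fell in both, from 81.8, 64.7 and 95.2 CPM at 6 h and 25.0, 27.4 and 33.2 CPM at 12 h with MSC and from 98.7, 161 and 138 CPM at 6 h and 7.20, 7.68 and 9.65 CPM at 12 h without (difference 2.52 ± 0.30 SE, edgeR adjusted p = 0.00911).

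In the list of endothelial genes the difference passed for 1 of 18. Flt4, the VEGF receptor 3 of lymphatic and sinusoidal endothelium, had 2.90, 2.93 and 3.68 CPM at 6 h and 6.80, 5.80 and 5.80 CPM at 12 h with MSC and 4.51, 3.96 and 3.31 CPM at 6 h and 1.76, 1.51 and 2.44 CPM at 12 h without (difference 2.000 ± 0.33 SE, edgeR adjusted p = 0.0432). Jam2, a junctional adhesion molecule, had 4.69, 3.95 and 5.17 CPM at 6 h and 14.5, 14.9 and 10.6 CPM at 12 h with MSC and 6.63, 5.45 and 5.32 CPM at 6 h and 5.92, 3.67 and 4.44 CPM at 12 h without (difference 1.84 ± 0.31 SE, edgeR adjusted p = 0.0498). Gimap4, a GTPase of lymphocytes and endothelium, had 5.96, 4.62 and 6.82 CPM at 6 h and 10.97, 14.3 and 14.1 CPM at 12 h with MSC and 5.66, 7.16 and 8.002 CPM at 6 h and 3.78, 3.05 and 5.18 CPM at 12 h without (difference 1.97 ± 0.33 SE, edgeR adjusted p = 0.0496). With MSC the 12 h libraries exceeded the 6 h libraries in all 3.

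The change was lower with MSC for Adcy1 and Nat8. Adcy1, an adenylyl cyclase, had 27.9, 19.0 and 24.1 CPM at 6 h and 1.72, 0.964 and 1.58 CPM at 12 h with MSC and 25.8, 25.8 and 23.97 CPM at 6 h and 4.54, 5.68 and 6.84 CPM at 12 h without (difference -1.91 ± 0.32 SE, edgeR adjusted p = 0.0496). Nat8, an acetyltransferase, had 5.41, 5.65 and 8.24 CPM at 6 h and 1.04, 0.526 and 0.791 CPM at 12 h with MSC and 1.79, 1.19 and 1.66 CPM at 6 h and 1.23, 2.07 and 2.14 CPM at 12 h without (difference -3.26 ± 0.47 SE, edgeR adjusted p = 0.0191), so at 6 h it was higher with MSC in each library. Csrp1 and Hpgd passed under each alternative run for the difference. The other 7 did not pass when any Con A+MSC library other than 12 h replicate 1 was left out (edgeR adjusted p between 0.0518 and 0.151), and Adcy1, Ccl5, Flt4, Gimap4 and Jam2 did not pass with TMM factors computed without the mitochondrially encoded genes (adjusted p between 0.0543 and 0.0597). Gimap4 also missed the threshold with DESeq2's size factors (adjusted p = 0.0505).

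**Figure D5:**
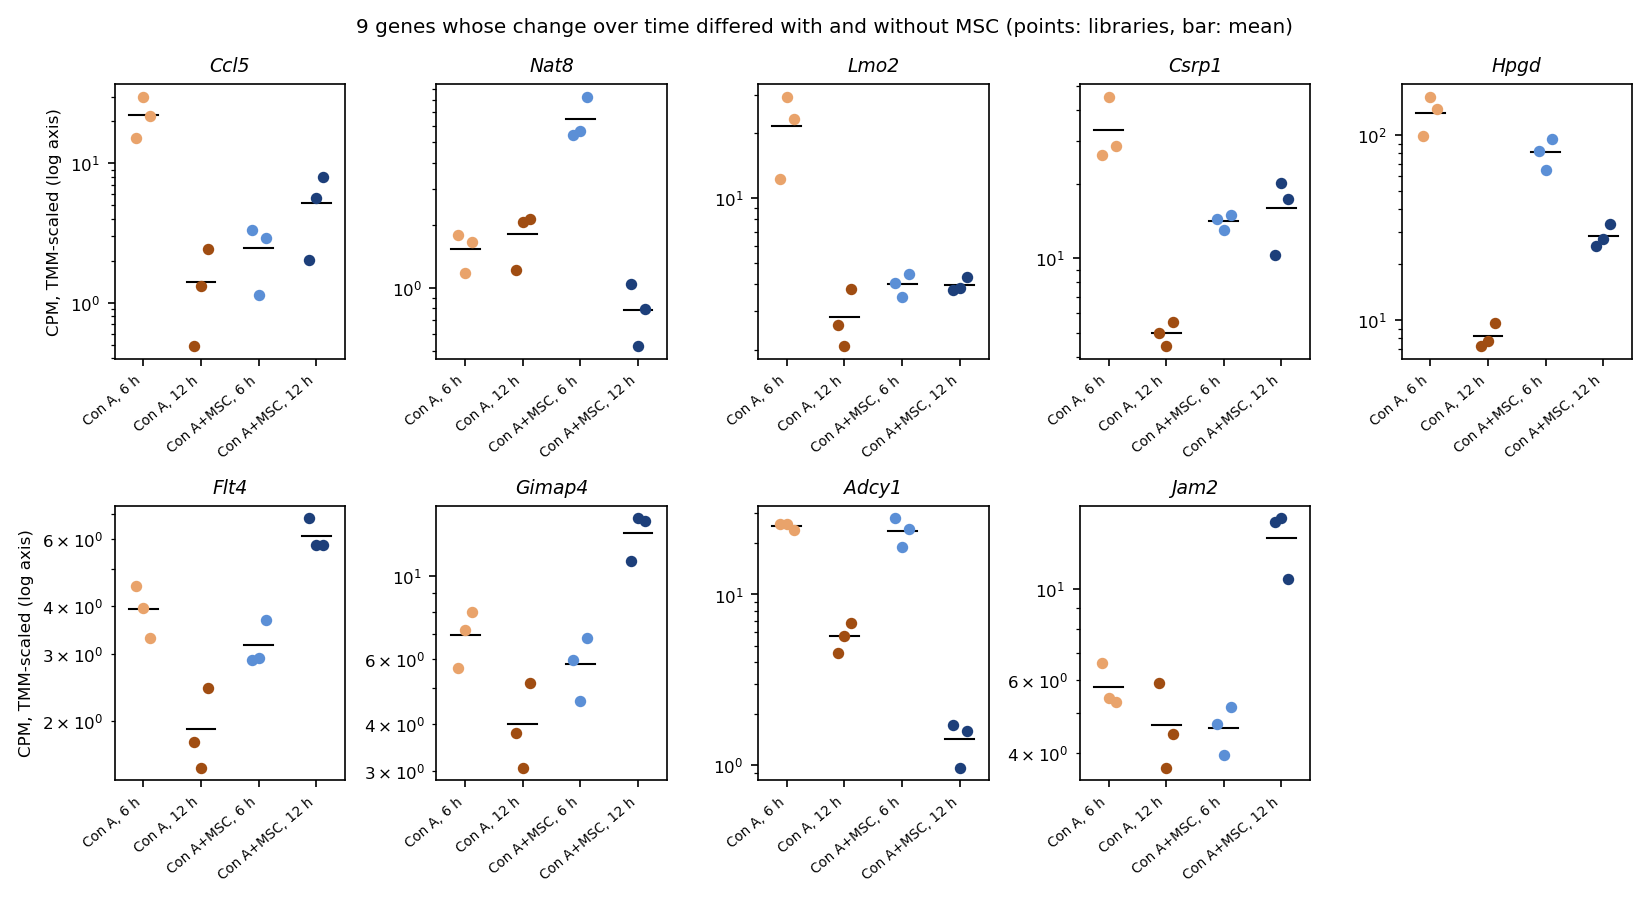
CPM with TMM scaling (vertical axes, logarithmic) of the 9 genes named for the difference, in the 3 libraries of each of the 4 groups (horizontal axis). Points are libraries and bars their means. Lmo2 and Csrp1 drop between 6 h and 12 h without MSC and are level with MSC, Jam2 and Gimap4 are highest at 12 h with MSC, and Adcy1 and Nat8 are lowest there.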

How the data were processed

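RNA of mouse liver was sequenced in 12 libraries, 3 in each of 4 groups. The authors deposited raw counts per gene, with no normalization, in 4 tables, 1 for each group. Per the submitters' processing notes, the build was GRCm39 and the tools included StringTie 2.1.2, Bowtie2 2.2.5 and HISAT2 2.0.4. The counting program is not given in the sources used here, nor are the gene models.

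Genes with low counts were removed by filterByExpr, factors were computed by TMM, and all 12 libraries were fitted with edgeR 4.0.16 (quasi-likelihood test, limma 3.58.1, R 4.3.3, 8 residual degrees of freedom), with Benjamini-Hochberg adjustment over 14275 genes and a threshold of 0.05. Standard errors were obtained as the absolute log2 value over the root of the F statistic. CPM use TMM-scaled totals. The interaction of time and MSC came from the same fit. Named genes were the 12 largest rises and falls with no overlap between times and a mean of at least 5 CPM at one of them, leaving out predicted and unnamed loci, the 4 smallest adjusted p of each list, a panel of genes and the 10 largest differences that passed. Those differences also left out predicted and unnamed loci and required a mean of at least 5 CPM in the highest of the 4 groups. A few genes that the rule names are not reported here. Members and lists were chosen with earlier results of these data known. The lists number 53. The test was run on simulated counts of 13914 genes, 200 of them changed. There 40 of 100 2-fold and 89 of 100 4-fold changes were recovered, and 8 calls (5.84%) were false. Promoters came from a RefSeq table of GRCm38.p6, another build than that of the counts. Alternatives were DESeq2 1.42.0, other scaling, no filter, a replicate block, fewer samples and stricter thresholds. Libraries of a group differed by more than sampling noise. Depth over the 12 libraries was 29.7 to 36.1 (units of 1e6 counts), and a level of 3 counts covers counting error only.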

Additional observations from a re-analysis of the deposited data

Results flagged for a closer look

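For 9 of the genes the change between 6 h and 12 h differed between livers with and without MSC by an interaction term in edgeR, and these are listed with the log2 change with MSC minus that without. The change was higher with MSC for Ccl5 (5.09, edgeR adjusted p = 0.0432), Lmo2 (2.93, adjusted p = 0.0200) and Csrp1 (2.92, adjusted p = 0.00911). It was also higher for Hpgd (2.52, adjusted p = 0.00911), Flt4 (2.0, adjusted p = 0.0432), Gimap4 (1.97, adjusted p = 0.0496) and Jam2 (1.84, adjusted p = 0.0498). It was lower with MSC for Nat8 (-3.26, adjusted p = 0.0191) and Adcy1 (-1.91, adjusted p = 0.0496). With 3 libraries in a group, single libraries far from the others were not tested for.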

How the results depend on the processing

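The count of genes that passed over time with MSC was 5816 and lay between 5526 and 7008 with DESeq2 (6268), DESeq2's size factors in edgeR (5833), scaling by total count (7008), TMM factors without mitochondrially encoded genes (5816), no filter on low counts (5526), the 6 libraries alone (6436) or, an alternative chosen after seeing the data, without the Con A 12h libraries (5955). It was 3588 at an adjusted p of 0.01, 3450 with a change of at least 2-fold, and 4434 to 5063 without 1 of the 6 libraries. The 18 genes of the difference between the changes with and without MSC became 655 in DESeq2, 211 with scaling by total count, 11 with TMM factors without mitochondrially encoded genes, 45 without the filter, and 5 to 131 without 1 library (131 without 12 h replicate 1), and the cause was not tested. The change in mitochondrially encoded share, -3.72 percentage points, was -4.57 to -3.20 without 1 library. Same-numbered libraries of the 2 times correlated in their deviations by -0.0099, 0.0599 and 0.0993, so they share only a number. With the replicate block 5347 genes passed over time (5920 in the 6 libraries alone) and 15 for the difference, and not every library correlated best with its own number.

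With the block Stat2, Ddx58, Clec4f, Krt19, Ccnb1, mt-Nd1, Tnf, Il6, Trib3, Cyp4a14, Cyp7a1 and Cebpa did not pass over time (adjusted p 0.0508 to 0.0827), nor did Flt4, Adcy1 and Jam2 for the difference (0.0825 to 0.0894). Of the genes printed, those whose log2 change turned its sign had not passed, except Cebpa. With scaling by total count the turned values were 0.53 for Lmo2, 0.18 for Sox9, 0.16 for Rps4x, 0.047 for Ifit1, 0.11 for Rsad2, 0.26 for H2-K1, 0.36 for Cd5l, 0.0471 for Stab2, 0.39 for Bbc3, 0.27 for Ccnd1, 0.40 for Pcna, 0.46 for Nqo1, 0.45 for Srxn1, 0.37 for Ldha, 0.31 for Pck1, 0.26 for Ppargc1a, 0.51 for Srebf1, 0.38 for Fasn, 0.10 for Cebpa and 0.51 for Rplp0. Without the filter they were 0.0185 for Lmo2 and 0.0259 for Srebf1. In the 6 libraries alone with the replicate block they were 0.00366 for Lmo2, 0.10 for Cd5l and -0.00855 for Timp1, and without the Con A 12h libraries 0.00113 for Lmo2 and 0.000662 for Srebf1. For genes that turned when 1 library was left out, the values ran from -0.0897 to 0.0927 for Lmo2, -0.0181 to 0.42 for Csrp1, -0.88 to 0.14 for Sox9, -0.93 to 0.22 for Rsad2, -0.64 to 0.28 for Cd5l, -0.23 to 0.54 for Cd3e, -1.39 to 2.46 for Acta2, -0.38 to 0.34 for Timp1, -0.0871 to 0.30 for Fgb, -0.41 to 0.31 for Bbc3, -0.11 to 0.53 for Ripk3, -0.43 to 0.00549 for Ccnd1, -0.26 to 0.0323 for Pcna, -0.0439 to 0.28 for Hspa1a, -0.20 to 0.16 for Nqo1, -0.18 to 0.38 for Gclc, -0.25 to 0.22 for Srxn1, -0.57 to 0.27 for Srebf1, -0.36 to 0.0779 for Fasn, -0.21 to 0.31 for Per2 and -0.0358 to 0.0131 for Rplp0. Groups of 3 leave 8 residual degrees of freedom. In simulated counts with 200 of 13914 genes changed, 2-fold changes were recovered for 40 of 100 genes. In the data 5816 genes passed, so the adjusted threshold is another and that share does not carry over. A change that did not pass is not shown to be absent.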
